A study of Mus musculus with 20 samples.

Results

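The lungs of Arg2 knockout mice were compared after 28 days at 10% oxygen and after 28 days at 21% oxygen. The samples were chosen by their labels: the 4 knockout hypoxia and 4 knockout room air samples make up 8 of the 16 samples of the series, and 10 of its 20 libraries. In room air the numbers 2 and 4 each had an A and a B library, which were summed. The labels do not state that A and B come from the same animal. At equal depth the 2 pairs differed less, with a chi-square of 2.07 per degree of freedom, than libraries of different numbers, at 4.63 to 10. By the labels, the mice of both groups carried Arg2-/- on a C57/129 background, were adults of 8 to 10 weeks when exposed, and came from groups in which the labels place both sexes. Room air controls were of matched age and similar housing, and the hypoxic mice stayed in low oxygen until they were killed. The knockout is thus shared by both groups, and oxygen is the labelled difference between them. The genotype names no driver or cell type for the deletion, and the labels do not say which stretch of the gene was deleted. The series asks how loss of Arg2 bears on hypoxic pulmonary hypertension. The other 8 samples, wild type lungs under the same 2 conditions, enter here through a shared estimate of the spread and through a test of the difference between the genotypes' effects.

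Arg2 encodes the mitochondrial arginase, an enzyme that cleaves arginine to ornithine and urea and competes for arginine with the nitric oxide synthases. Under chronic low oxygen the muscular wall of small pulmonary arteries thickens, peripheral vessels gain smooth muscle, red cell mass rises and the right ventricle enlarges. The lung itself is a mixture in which capillary endothelium, alveolar epithelium, airway epithelium, mesenchyme and resident leukocytes each contribute RNA. In such bulk tissue, fewer cells of a type and less RNA per cell cannot be told apart.

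Reads counted in genes ranged from 18649285 to 63331530 in the room air samples and from 17740561 to 43700225 in the hypoxia samples. Values are given as CPM, counts-per-million reads in genes after TMM scaling, in the order of sample numbers 1 to 4 of each group. The first principal component of the 8 samples held 61.3% of the variance and placed the room air samples at -12.5 to -8.96 and the hypoxia samples at 8.2 to 12.3. Markers of every expected lung compartment were present in all 8 samples: Sftpc of alveolar type II cells at 9036 to 12050 CPM, Ager of type I cells at 1851 to 2072, Scgb1a1 of secretory cells at 12660 to 15590, Cdh5 of endothelium at 713 to 906 and Ptprc of leukocytes at 166 to 367. Arg2 still had reads: 4.58, 5.25, 4.88 and 7.78 CPM in room air and 4.57, 3.22, 5.37 and 3.97 in hypoxia. The groups overlapped, and the change did not pass the test (log2 fold change -0.39 ± 0.22, adjusted p = 0.244), while the means of the wild type groups were 9.19 CPM in room air and 9.3 in hypoxia. A count over the whole gene does not show which exons are missing.

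A gene is called changed when its adjusted p is under 0.05 in edgeR's quasi-likelihood test, with Benjamini-Hochberg adjustment over all 15766 genes tested. Log2 fold changes compare hypoxia with room air and carry a standard error after the ± sign. Of the 15761 genes outside the sex chromosome checks, 2685 were called, which is 17% of those tested. They divided into 1251 higher (7.94%) and 1434 lower (9.1%) in hypoxia, around a median log2 fold change of 0.0038 over all genes. Past a 2-fold change the balance tilted to loss: 233 genes (1.48%) were higher and 497 (3.15%) lower. The groups did not overlap for 2005 genes that were higher in every hypoxia sample (12.7%) and 1835 that were lower in every one (11.6%). The share of called members of each gene list is to be read against these percentages. Where a call is said to be lost without several samples, each was left out on its own. Fits without room air 3 and 4, without hypoxia 1 and 2, and without room air 3 and 4 and hypoxia 1 were made because these samples carry markers of other tissues. Of 182 called genes described here with sample values or a genotype difference, 43 did not pass in at least 1 of these 3 fits. Such a loss is not stated for every gene below. No label says outright that each sample is its own animal, and the p-values then speak only of sample-to-sample spread, part of which may be technical.

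**Figure D1:**
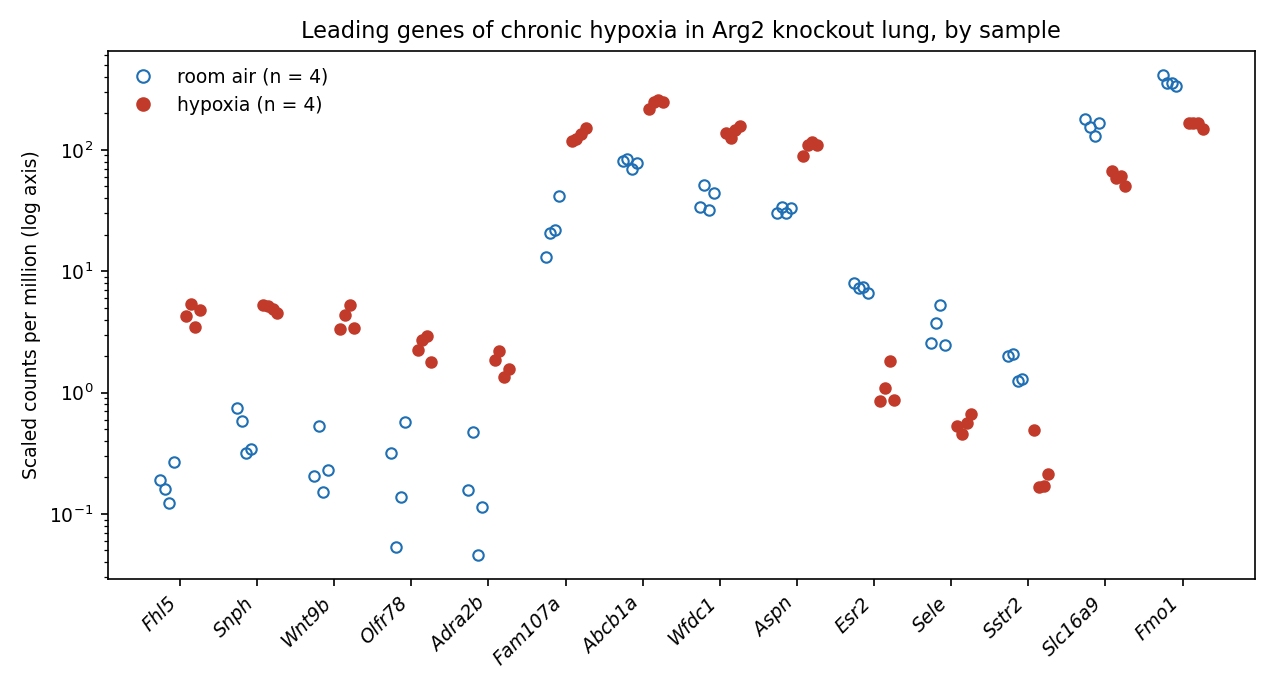
Scaled counts-per-million (log axis) of 14 genes named below in each of the 4 room air samples (open circles) and 4 hypoxia samples (filled circles) of Arg2 knockout lung. In every gene shown the hypoxia samples lie wholly above or wholly below the room air samples. Leading genes were chosen by fold change among called genes without overlap, so this separation is no added evidence.

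The genes with the largest fold changes were picked among called genes whose groups did not overlap. Separation of the groups in such genes, here and in the next paragraphs, follows from that choice. Several of the largest rises belonged to genes that were close to silent in room air. Fhl5, a LIM-domain coactivator (chr4:25199908-25242876), was measured at 0.191, 0.159, 0.122 and 0.267 CPM in room air and 4.25, 5.39, 3.5 and 4.77 in hypoxia. Gene positions here and below are those of GENCODE vM21 on GRCm38, the assembly also called mm10. The groups were far apart (log2 fold change 4.63 ± 0.36, adjusted p = 1.31e-07). Snph, which encodes the mitochondrial anchor syntaphilin, was at 0.747, 0.584, 0.32 and 0.343 CPM in room air and 5.3, 5.14, 4.86 and 4.56 in hypoxia (log2 fold change 3.30 ± 0.37, adjusted p = 5.96e-06). Olfr78, an odorant receptor gene also known from vascular smooth muscle and the carotid body, was at 0.318, 0.0531, 0.137 and 0.572 CPM in room air and 2.24, 2.71, 2.94 and 1.8 in hypoxia. All 4 hypoxia samples exceeded all 4 room air samples for Olfr78 (log2 fold change 3.14 ± 0.46, adjusted p = 0.000121). The next 2 genes are a Wnt ligand and an adrenergic receptor. Wnt9b was at 0.207, 0.531, 0.152 and 0.229 CPM in room air and 3.36, 4.34, 5.31 and 3.38 in hypoxia (log2 fold change 4.03 ± 0.64, adjusted p = 0.000282). Adra2b was at 0.159, 0.478, 0.0457 and 0.115 CPM in room air and 1.84, 2.21, 1.36 and 1.56 in hypoxia (log2 fold change 3.39 ± 0.61, adjusted p = 0.000727). These genes stayed below 6 CPM in hypoxia, so their folds rest on few reads in room air.

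Among more abundant genes 2 rose as far. Ntrk2, which encodes the neurotrophin receptor TrkB (chr13:58806569-59133970), was at 34.2, 29.8, 22.3 and 16.4 CPM in room air and 308, 308, 217 and 255 in hypoxia (log2 fold change 3.40 ± 0.20, adjusted p = 3.51e-08). Rgs5, a pericyte brake on G protein signalling, was at 7.34, 7.22, 8.42 and 5.46 CPM in room air and 119, 173, 165 and 154 in hypoxia (log2 fold change 4.41 ± 0.34, adjusted p = 1.3e-06). Both separated the groups, and the other abundant genes given here had smaller folds. Abcb1a, the drug efflux pump of lung and brain endothelium (chr5:8660077-8748575), was at 81.2, 83.9, 69.7 and 78.5 CPM in room air and 215, 246, 258 and 248 in hypoxia (log2 fold change 1.63 ± 0.11, adjusted p = 3.51e-08). Aspn, which encodes the small matrix proteoglycan asporin, was at 30.2, 33.5, 30.1 and 33.3 CPM in room air and 88.2, 109, 116 and 111 in hypoxia (log2 fold change 1.74 ± 0.20, adjusted p = 1.5e-05). Wfdc1, a secreted protein with a protease inhibitor fold, was at 33.9, 51.5, 32 and 43.9 CPM in room air and 138, 126, 146 and 157 in hypoxia (log2 fold change 1.82 ± 0.18, adjusted p = 3.06e-06). Each of these 3 genes had its 4 hypoxia samples above its 4 room air samples. Samples differed more for Fam107a, an actin-associated gene induced by stress hormones, which was at 13.1, 20.6, 21.9 and 41.5 CPM in room air and 117, 123, 135 and 152 in hypoxia. Room air sample 4 held the highest room air value of Fam107a and still lay below every hypoxia sample (log2 fold change 2.45 ± 0.40, adjusted p = 0.000874).

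Losses reached genes of hormone sensing, leukocyte adhesion and transport. Esr2, the gene of oestrogen receptor beta (chr12:76120419-76177259), was at 8.07, 7.33, 7.35 and 6.56 CPM in room air and 0.856, 1.09, 1.81 and 0.874 in hypoxia (log2 fold change -2.72 ± 0.24, adjusted p = 3.6e-07). Sele, the endothelial adhesion molecule E-selectin, was at 2.54, 3.77, 5.29 and 2.48 CPM in room air and 0.526, 0.459, 0.565 and 0.662 in hypoxia (log2 fold change -2.65 ± 0.32, adjusted p = 1.32e-05). Sstr2, a somatostatin receptor, was at 1.99, 2.07, 1.24 and 1.3 CPM in room air and 0.494, 0.167, 0.17 and 0.213 in hypoxia (log2 fold change -2.59 ± 0.43, adjusted p = 0.000325). In each of these the highest hypoxia sample lay below the lowest room air sample. Slc16a9, a monocarboxylate transporter, was at 181, 155, 131 and 168 CPM in room air and 66.3, 58.6, 61.4 and 50.1 in hypoxia (log2 fold change -1.42 ± 0.12, adjusted p = 2.5e-07). Fmo1, a flavin monooxygenase abundant in lung (chr1:162829561-162866610), was at 416, 355, 352 and 337 CPM in room air and 166, 166, 165 and 149 in hypoxia (log2 fold change -1.18 ± 0.09, adjusted p = 6.53e-08). Hilpda, a lipid droplet protein named for its induction by hypoxia, was lower here, at 129, 129, 104 and 123 CPM in room air and 51.6, 48.6, 62.7 and 48.9 in hypoxia (log2 fold change -1.19 ± 0.17, adjusted p = 9.32e-05).

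Genes of protein folding in the endoplasmic reticulum (ER) rose together. The ER is where secreted and membrane proteins fold, and when unfolded protein accumulates, its sensors raise the transcription of chaperones through a promoter sequence called the ER stress element. Of 22 measured ER chaperones and folding enzymes, 13 were called higher and 1 lower, with a median log2 fold change of 0.46 against 0.0038 over all genes. The motif was searched in the RefSeq promoter windows of GRCm38.p6, 250 bases before to 50 after each start, as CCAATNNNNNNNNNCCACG on either strand. Such a match lies in 39 of 32851 windows (0.119%). Of the 22 chaperone genes, 18 have a window, and 7 of these hold the motif. All 7 were called higher, against 4 of the 11 that have a window without it. Over the whole genome 20 tested genes have the motif, 9 of them were called higher, 0 lower and 11 not called. The 9 include the 7 chaperones and Derl3 of ER degradation, so this count mostly repeats them. The matches of the 7 chaperones and of the ER degradation gene Derl3 are printed here from 5′ to 3′ along each gene, with the matched letters in capitals and 15 bases on either side, because these are the called members of the 2 lists that hold it. Syvn1, a ubiquitin ligase of ER degradation, holds the motif too but did not pass (log2 fold change 0.42 ± 0.18, adjusted p = 0.121) and is not printed.

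Hspa5: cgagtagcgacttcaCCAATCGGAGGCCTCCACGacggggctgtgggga
Creld2: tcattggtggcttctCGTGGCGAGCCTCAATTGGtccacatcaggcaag
Pdia6: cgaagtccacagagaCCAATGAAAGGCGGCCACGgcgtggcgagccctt
Calr: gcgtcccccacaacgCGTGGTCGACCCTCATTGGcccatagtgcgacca
Dnajc3: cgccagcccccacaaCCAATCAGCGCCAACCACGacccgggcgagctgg
Hsp90b1, farther from the start: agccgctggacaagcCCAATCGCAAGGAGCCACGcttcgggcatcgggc
Hsp90b1, nearer the start: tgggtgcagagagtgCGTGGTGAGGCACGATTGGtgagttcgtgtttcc
Canx: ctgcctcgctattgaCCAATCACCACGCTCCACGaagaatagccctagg
Derl3: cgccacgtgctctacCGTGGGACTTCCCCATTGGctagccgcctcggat

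Hspa5 encodes BiP, the most abundant of these chaperones. Its motif runs from 65 to 47 bases before the start, within the printed stretch chr2:34772010-34772058 of the plus strand. The Creld2 match reads on the opposite strand, within chr15:88819505-88819553, and Hsp90b1 has 2 matches, within chr10:86705623-86705671 and chr10:86705518-86705566 of a gene on the minus strand. The other printed stretches are chr12:17266476-17266524 (Pdia6), chr8:84847060-84847108 (Calr), chr14:118937812-118937860 (Dnajc3), chr11:50325785-50325833 (Canx) and chr10:75893227-75893275 (Derl3). A match of letters is a description and does not show that a factor binds there.

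The 8 genes printed were called higher, by amounts from 0.30 for Canx to 1.90 for Derl3 on the log2 scale. Canx lost its call without room air 1, 2, 3 or 4 or hypoxia 1, 3 or 4 (adjusted p = 0.0507 to 0.137). Hspa5 was at 735, 893, 819 and 682 CPM in room air and 1602, 1374, 1643 and 1894 in hypoxia (log2 fold change 1.06 ± 0.13, adjusted p = 1.32e-05). Pdia6, a disulfide isomerase, was at 250.4, 311, 265 and 264 CPM in room air and 388, 362, 421 and 433 in hypoxia (log2 fold change 0.56 ± 0.10, adjusted p = 0.000746). Calr, the calcium-binding lectin chaperone calreticulin, was at 516, 639, 548 and 512 CPM in room air and 762, 774, 796 and 788 in hypoxia (log2 fold change 0.49 ± 0.09, adjusted p = 0.000921). In Hspa5, Pdia6 and Calr every hypoxia sample lay above every room air sample. Dnajc3, a co-chaperone that also restrains the translation kinase of the ER, was at 351, 379, 361 and 347 CPM in room air and 478, 443, 525 and 557 in hypoxia (log2 fold change 0.48 ± 0.10, adjusted p = 0.00195).

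Members without the motif, or without a window, rose as well. Manf, a secreted ER stress protein, was at 67.3, 76.2, 84 and 62 CPM in room air and 159.6, 138, 150.1 and 188 in hypoxia, with no overlap (log2 fold change 1.14 ± 0.14, adjusted p = 2.41e-05). Hyou1, the ER chaperone known as ORP150, was at 161, 203, 172 and 150 CPM in room air and 283, 226, 241 and 254 in hypoxia (log2 fold change 0.55 ± 0.09, adjusted p = 0.000458). Dnajb11, a co-chaperone of BiP, was at 85.2, 100.1, 86.6 and 83.1 CPM in room air and 124, 119.9, 130.3 and 133 in hypoxia (log2 fold change 0.52 ± 0.08, adjusted p = 0.000108). BiP works with such partners to bind and release its clients. The disulfide isomerase Pdia4 was at 169.9, 207, 186 and 186 CPM in room air and 277, 244, 283 and 298 in hypoxia (log2 fold change 0.56 ± 0.08, adjusted p = 0.000123). The exception was Sil1, the nucleotide exchange factor of BiP, which was lower at 42.6, 44.2, 42.1 and 45.1 CPM in room air and 35.4, 32.3, 38.1 and 35.5 in hypoxia (log2 fold change -0.30 ± 0.08, adjusted p = 0.0177). Sil1 lost its call without hypoxia 2 (adjusted p = 0.0667). Txndc5, Erp44, P4hb and Fkbp2 were among the 8 members that did not pass, with log2 fold changes from -0.17 for Txndc5 to 0.64 for Dnajb9. Txndc5 passed without hypoxia 1 (adjusted p = 0.0499). Without room air samples 3 and 4 and hypoxia sample 1, a choice made after seeing the data, 10 members were called higher and 0 lower.

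Downstream of the chaperones, 6 of 22 genes of ER degradation and export were called higher and 0 lower, or 3 with room air 3 and 4 left out. Edem1, a lectin that hands glycoproteins to degradation, was at 128, 147, 140.1 and 133 CPM in room air and 204, 173, 182 and 204 in hypoxia (log2 fold change 0.48 ± 0.09, adjusted p = 0.00158). Herpud1, a membrane organiser of the same route, was at 152, 166, 209 and 278 CPM in room air and 341, 288, 279.7 and 357 in hypoxia (log2 fold change 0.66 ± 0.19, adjusted p = 0.0282). Herpud1 lost its call without room air 1, 2 or 3 or hypoxia 1 or 4 (adjusted p = 0.0547 to 0.0877). Derl3 was low in level and uneven: 0.556, 0.478, 0.747 and 0.992 CPM in room air and 3.65, 0.919, 2.6 and 3.17 in hypoxia. Its hypoxia sample 2 fell inside the room air range, and the call rests on the other 3 (log2 fold change 1.90 ± 0.36, adjusted p = 0.0011). The export and translocation genes Sec61a1, Sec61b and Sec13 had log2 fold changes of 0.08, 0.06 and -0.05 and did not pass.

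The regulators of the stress response moved in both directions. Of 24 sensors and stress response genes, 4 were called higher and 4 lower, with a median of 0.02. Xbp1, the transcription factor spliced on ER stress, was at 220.2, 227, 241 and 221 CPM in room air and 320.5, 323, 324 and 376 in hypoxia (log2 fold change 0.56 ± 0.09, adjusted p = 0.000175). Ddit3, the stress factor CHOP, was at 17.8, 20.2, 22.9 and 20.1 CPM in room air and 30.7, 31.6, 35.4 and 36 in hypoxia (log2 fold change 0.72 ± 0.13, adjusted p = 0.00065). Trib3, a pseudokinase target of it, was at 3.23, 2.55, 3.96 and 5.61 CPM in room air and 8.62, 10.4, 7.29 and 9.29 in hypoxia (log2 fold change 1.21 ± 0.20, adjusted p = 0.00031). Those 3 genes were higher in every hypoxia sample. Against these rises, Atf4, the central factor of the integrated stress response, was lower at 203, 205, 212 and 255 CPM in room air and 155, 156, 154 and 172 in hypoxia (log2 fold change -0.46 ± 0.10, adjusted p = 0.00303). Atf4 did not pass without room air 3 and 4, nor with hypoxia 1 left out as well (adjusted p up to 0.0986). Atf3 was lower as well, at 46, 46.1, 40.1 and 45.1 CPM in room air and 22.3, 15.6, 18.3 and 27.5 in hypoxia (log2 fold change -1.08 ± 0.19, adjusted p = 0.000923). The amino acid response genes Asns, Psat1 and Phgdh had log2 fold changes of 0.22, 0.07 and -0.16 and did not pass. The sensors Ern1, Atf6 and Eif2ak3 did not pass either (-0.35, 0.01 and 0.20). Ern1 passed without hypoxia 1 (adjusted p = 0.0365). Eif2ak3 passed without hypoxia 2 (adjusted p = 0.0329).

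**Figure D2:**
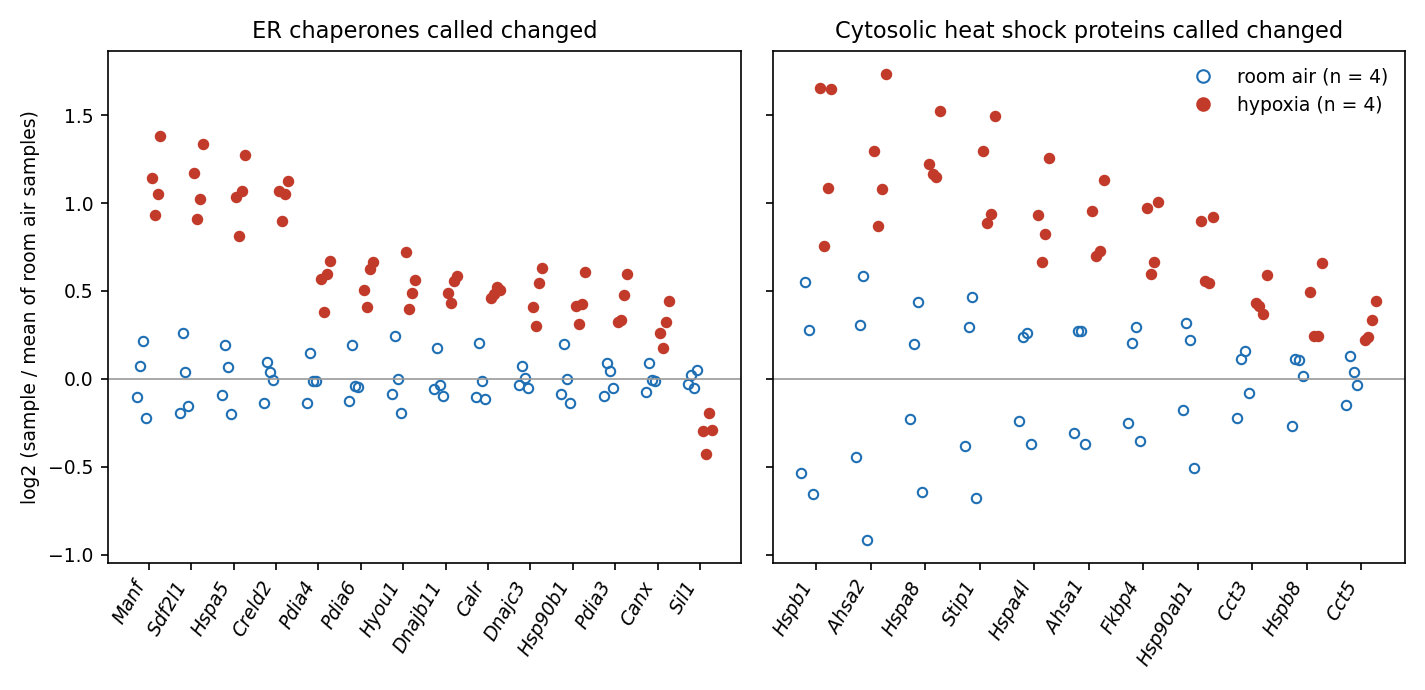
Log2 ratio of each knockout sample to the mean of the 4 room air samples, for ER chaperones (left) and cytosolic heat shock proteins (right) called changed. Open circles are room air and filled circles hypoxia samples 1 to 4; the ER chaperones of room air stay close to 0, while room air samples 1 and 4 lie below 2 and 3 for the heat shock proteins.

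Cytosolic chaperones of the heat shock class rose too, but with a wider spread in room air. Of 26 measured members, 11 were called higher and 0 lower, with a median of 0.80. Hspa8, the constitutive HSP70, was at 186, 251, 296 and 139.7 CPM in room air and 510, 489.8, 485 and 627 in hypoxia (log2 fold change 1.27 ± 0.29, adjusted p = 0.00772). Stip1, which couples HSP70 to HSP90, was at 86.5, 138, 156 and 70.5 CPM in room air and 277, 208, 216 and 317 in hypoxia (log2 fold change 1.18 ± 0.26, adjusted p = 0.00605). The HSP90 gene Hsp90ab1 was at 1034, 1461, 1363 and 824 CPM in room air and 2182, 1722, 1707 and 2220 in hypoxia (log2 fold change 0.74 ± 0.17, adjusted p = 0.00521). Small heat shock proteins hold unfolding proteins until HSP70 can act. Hspb1, one of them, was at 47.3, 100.5, 83.3 and 43.6 CPM in room air and 216, 116, 146 and 215 in hypoxia (log2 fold change 1.34 ± 0.30, adjusted p = 0.00673). In room air, samples 1 and 4 were the 2 lowest for each of these 4 genes. The stress-inducible Hspa1b was more uneven still, at 40.9, 108, 179 and 19.3 CPM in room air and 411, 146, 135 and 472 in hypoxia, and did not pass (log2 fold change 1.74 ± 0.98, adjusted p = 0.267). Hspa1a and Hspa1b are near-identical copies, so reads that align to both can be missing from either count. With room air 3 and 4 and hypoxia 1 left out, 4 of the 26 were called higher.

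The mitochondrial chaperonin pair moved with them. Hspd1 and Hspe1 are divergent neighbours on chromosome 1 that share a promoter, and the groups did not overlap for either. Hspd1 was at 46, 58.3, 74.4 and 41.9 CPM in room air and 103, 75.9, 84.9 and 130 in hypoxia (log2 fold change 0.84 ± 0.22, adjusted p = 0.0145). Hspe1 was at 21.4, 33.6, 33.3 and 20.6 CPM in room air and 43.1, 38.4, 44 and 59.3 in hypoxia (log2 fold change 0.77 ± 0.23, adjusted p = 0.0317). Hspe1 lost its call without room air 1 or 4 or hypoxia 3 or 4 (adjusted p = 0.0539 to 0.109). Hspd1 lost its call without hypoxia 4 (adjusted p = 0.0522). Both lost their call without room air 3 and 4 and hypoxia 1. The other 6 mitochondrial chaperones and proteases did not pass, with log2 fold changes from -0.14 for Trap1 to 0.14 for Clpp. A heat shock element, GAANNTTCNNGAA on either strand, lies in 198 of 32851 windows (0.603%). Of the 70 tested genes that hold it, 5 were called higher, Hspd1 and Hspe1 among them, 5 lower and 60 not called. Over all genes the shares were 7.94% higher and 9.1% lower. Hspd1 and Hspe1 hold it in the stretch between them, within chr1:55088044-55088091, shown along Hspe1 with 2 overlapping matches in capitals.

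Hspe1: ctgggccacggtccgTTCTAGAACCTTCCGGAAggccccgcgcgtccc

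Of the 21 cytosolic heat shock genes with a window, 2 hold that motif, Hsph1 and Chordc1, and neither was called (log2 fold changes 1.26 and 1.08, adjusted p = 0.12 and 0.0531). Chordc1 passed without room air 3 (adjusted p = 0.0276). Cirbp, an RNA-binding protein induced by cold and lowered by warmth (chr10:80165985-80172786), was lower at 52.2, 31.4, 34.7 and 69 CPM in room air and 22.6, 20.2, 18.9 and 18.9 in hypoxia (log2 fold change -1.22 ± 0.22, adjusted p = 0.00124). Room air samples 1 and 4, the lowest for Hspa8, were the highest for Cirbp. Rbm3, its close relative, was at 18.1, 17.5, 18.5 and 12.3 CPM in room air and 14.9, 16.4, 21.1 and 19.6 in hypoxia, and the groups overlapped (log2 fold change 0.11 ± 0.16, adjusted p = 0.703).

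Endothelial genes moved in both directions. Endothelium lines every vessel of the lung, and its capillary part divides into aerocytes specialised for gas exchange and general capillary cells. Of 12 aerocyte genes, 6 were lower and 0 higher (median -0.50). Kdr, the main receptor for VEGF, was at 628, 514, 522 and 506 CPM in room air and 365, 327, 295 and 286 in hypoxia (log2 fold change -0.77 ± 0.10, adjusted p = 5.26e-05). Fibin was at 71.6, 79.2, 63.7 and 90.1 CPM in room air and 31.6, 30.6, 36.1 and 23.4 in hypoxia (log2 fold change -1.33 ± 0.18, adjusted p = 5.91e-05). The carbonic anhydrase gene Car4 was at 98.3, 96.1, 89.4 and 82.2 CPM in room air and 74.7, 61.9, 42 and 49.3 in hypoxia (log2 fold change -0.68 ± 0.13, adjusted p = 0.00129). Each of these was lower in every hypoxia sample. The aerocyte genes Emp2, Prx and Tbx3 had log2 fold changes of -0.15, 0.27 and 0.34 and did not pass, so the list did not move as a block. Prx passed without hypoxia 3 (adjusted p = 0.0403).

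General capillary genes were mixed, with 6 of 13 lower and 2 higher. Bmp6, a BMP ligand, was at 112, 104, 90.2 and 102 CPM in room air and 46.2, 41, 36.3 and 26.6 in hypoxia (log2 fold change -1.44 ± 0.14, adjusted p = 1.12e-06). Glp1r, the incretin receptor, was at 84.9, 90.1, 65.9 and 79.9 CPM in room air and 61.5, 58.3, 49.1 and 42.4 in hypoxia (log2 fold change -0.60 ± 0.12, adjusted p = 0.00151). The largest loss of the list was Plvap, the diaphragm protein of fenestrae and caveolae, at 322, 366, 296 and 293 CPM in room air and 90.8, 65.4, 52.9 and 48.6 in hypoxia (log2 fold change -2.31 ± 0.15, adjusted p = 3.51e-08). All 3 were lower in every hypoxia sample. Sema3c, a secreted guidance cue, ran the other way at 874, 918, 809.5 and 955 CPM in room air and 1501, 1713, 1619 and 1636 in hypoxia (log2 fold change 0.86 ± 0.14, adjusted p = 0.000211). Gpihbp1, which carries lipoprotein lipase on capillaries, had a log2 fold change of 0.21 and did not pass, while Lpl itself was lower at 235, 212, 252 and 216 CPM in room air and 179.9, 169.9, 175 and 175 in hypoxia (log2 fold change -0.39 ± 0.11, adjusted p = 0.0213). Gpihbp1 passed without room air 4 (adjusted p = 0.0338). Lpl lost its call without room air 1 or 3 or hypoxia 2, 3 or 4 (adjusted p = 0.0504 to 0.0726).

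Arterial genes leaned upward. Of 12, 6 were higher and 2 lower (median 0.38), and the summed level of the list was 1615, 1726, 1558 and 1600 CPM in room air and 3019, 3027, 2801 and 2750 in hypoxia. Much of that sum was Cxcl12, a chemokine that is also on the general capillary list, at 319, 337, 255 and 261 CPM in room air and 1121, 1118, 918 and 1003 in hypoxia (log2 fold change 1.83 ± 0.13, adjusted p = 5.07e-08). Gja4, the arterial gap junction gene connexin 37, was at 39.7, 35.5, 38.3 and 36.8 CPM in room air and 92, 91.2, 60.8 and 74.1 in hypoxia (log2 fold change 1.08 ± 0.16, adjusted p = 0.000145). Sox17, an arterial transcription factor, was at 54.1, 47.4, 45.5 and 40.6 CPM in room air and 76, 86.1, 78.2 and 83.2 in hypoxia (log2 fold change 0.78 ± 0.16, adjusted p = 0.0027). These genes were higher in every hypoxia sample. Sox17 did not pass without room air 3 and 4, nor with hypoxia 1 left out as well (adjusted p up to 0.0691). Mgp, the calcification inhibitor of vessel walls, was at 538, 644, 555 and 714 CPM in room air and 1058, 1095, 1154 and 975 in hypoxia (log2 fold change 0.80 ± 0.15, adjusted p = 0.000881). Efnb2, the artery-defining ephrin, was lower instead at 223, 221, 209 and 170.4 CPM in room air and 164, 115, 92.7 and 104 in hypoxia (log2 fold change -0.79 ± 0.16, adjusted p = 0.00255). Its receptor on veins, Ephb4, counts among 3 of 10 venous genes that were higher, against 1 lower (median 0.21), and was at 158, 179.5, 168 and 178 CPM in room air and 294, 275, 252 and 239.7 in hypoxia (log2 fold change 0.64 ± 0.08, adjusted p = 1.95e-05).

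Of 8 genes of lymphatic endothelium 3 were higher and 1 lower. Prox1, its master transcription factor, was at 3.45, 3.88, 3.61 and 2.4 CPM in room air and 8.06, 6.14, 8.19 and 8.7 in hypoxia (log2 fold change 1.22 ± 0.20, adjusted p = 0.000242). Reln, which encodes reelin, was at 26.5, 25.5, 23.8 and 22.7 CPM in room air and 81.8, 67.6, 91.2 and 67.1 in hypoxia (log2 fold change 1.64 ± 0.16, adjusted p = 1.94e-06). Mmrn1, multimerin, was at 61.5, 71.6, 56.6 and 69.9 CPM in room air and 123, 132, 174 and 132 in hypoxia (log2 fold change 1.11 ± 0.17, adjusted p = 0.000177). Lymphatic vessels grow in response to a ligand of the VEGF family. That ligand, Vegfc, was at 22, 25.5, 22.8 and 23.2 CPM in room air and 43, 47.2, 58 and 50.5 in hypoxia (log2 fold change 1.09 ± 0.13, adjusted p = 1.86e-05). All 4 were higher in every hypoxia sample. Lyve1, a hyaluronan receptor shared with interstitial macrophages, was lower at 358, 519.8, 476 and 578 CPM in room air and 299.9, 188, 292 and 299.5 in hypoxia (log2 fold change -0.84 ± 0.16, adjusted p = 0.00124), and the receptor Flt4 did not pass (0.21). Leaving out room air 3 and 4 and hypoxia 1 gave the same counts.

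Genes shared by all endothelium showed no common shift: 7 of 18 were higher, 1 was lower and the median was 0.03. Pecam1 was at 977, 1023, 979 and 1080 CPM in room air and 1399, 1474, 1517 and 1451 in hypoxia (log2 fold change 0.53 ± 0.08, adjusted p = 8.8e-05). Emcn was at 62.3, 59.6, 62.6 and 63.6 CPM in room air and 108, 116, 88.7 and 107 in hypoxia (log2 fold change 0.76 ± 0.15, adjusted p = 0.00184), while Cdh5 and Cldn5 had log2 fold changes of -0.07 and -0.01. Eng, the co-receptor endoglin that is mutated in hereditary telangiectasia, was lower at 364, 366, 317 and 274 CPM in room air and 257, 225, 196 and 158 in hypoxia (log2 fold change -0.66 ± 0.15, adjusted p = 0.00551).

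Pericytes wrap capillaries and regulate their calibre. Of 15 pericyte genes, 4 were higher and 1 lower. Higd1b was at 21.3, 24.1, 21.8 and 25.8 CPM in room air and 52.1, 67.9, 57.9 and 58.1 in hypoxia (log2 fold change 1.35 ± 0.16, adjusted p = 2.26e-05). Abcc9, the sulfonylurea receptor subunit of vascular potassium channels, was at 23.8, 26.3, 23.1 and 25 CPM in room air and 46.1, 56, 51.2 and 38.9 in hypoxia (log2 fold change 0.97 ± 0.13, adjusted p = 5.55e-05). The calcium entry channel Trpc6 was at 69.7, 66.9, 62.1 and 67.9 CPM in room air and 101, 110, 117 and 121 in hypoxia (log2 fold change 0.75 ± 0.09, adjusted p = 1.63e-05). All 3 separated the groups. The pericyte genes Pdgfrb and Cspg4 did not pass (-0.19 and 0.63), so the rise concerned particular genes of the list. Cspg4 passed without hypoxia 4 (adjusted p = 0.0295). Trpv4, a mechanically gated calcium channel of pulmonary vessels, was at 5.28, 6.53, 5.29 and 7.97 CPM in room air and 19.2, 19.9, 22.3 and 17 in hypoxia (log2 fold change 1.66 ± 0.19, adjusted p = 1.01e-05). Kcnk3, the potassium channel mutated in heritable pulmonary hypertension, was at 23.8, 27.4, 26.4 and 24.2 CPM in room air and 21.6, 18.5, 21.8 and 15.1 in hypoxia (log2 fold change -0.41 ± 0.13, adjusted p = 0.0435). Kcnk3 lost its call without room air 1, 2, 3 or 4 or hypoxia 2 or 4 (adjusted p = 0.0601 to 0.159).

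Smooth muscle contractile genes as a list stayed near 0 (median -0.01), with 1 of 18 higher and 4 lower. Acta2, Myh11 and Tagln, the standard markers of differentiated smooth muscle, had log2 fold changes of 0.01 ± 0.16, -0.01 ± 0.12 and 0.35 ± 0.13 and did not pass. Hhip, the hedgehog-interacting protein of airway and vascular muscle, was lower at 65.3, 54.1, 52.6 and 50.5 CPM in room air and 31.6, 31.1, 30.7 and 24.8 in hypoxia (log2 fold change -0.92 ± 0.11, adjusted p = 1.91e-05). Synpo2, an actin-bundling protein, was at 32.8, 26.9, 28.6 and 25.9 CPM in room air and 22.1, 16.6, 16.9 and 13 in hypoxia (log2 fold change -0.74 ± 0.17, adjusted p = 0.00446).

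In the matrix, elastic fibre genes and collagen-modifying enzymes rose. Elastic fibres let arteries and alveoli recoil. Of 15 elastic fibre genes, 6 were higher and 1 lower, or 3 and 1 without room air 3 and 4 and hypoxia 1. Eln, elastin itself, was at 141, 144, 106 and 108 CPM in room air and 337, 239, 223 and 200.2 in hypoxia (log2 fold change 1.00 ± 0.23, adjusted p = 0.00607). Eln did not pass when room air 3 and 4, hypoxia 1 and 2, or room air 3 and 4 with hypoxia 1 were left out (adjusted p = 0.0655 to 0.169). Fbln2, a fibulin deposited in remodelling vessel walls (chr6:91212455-91272540), was at 17.9, 20.9, 20.5 and 13.8 CPM in room air and 91.9, 93.2, 82.8 and 77.6 in hypoxia (log2 fold change 2.24 ± 0.15, adjusted p = 3.51e-08). Mfap4 was at 176, 186, 152 and 199.8 CPM in room air and 346, 309, 329.8 and 268 in hypoxia (log2 fold change 0.81 ± 0.15, adjusted p = 0.00133). Microfibril proteins form the scaffold on which elastin is laid. One of them, Mfap2, was lower at 18.7, 23.2, 19.7 and 20.2 CPM in room air and 15.2, 14.2, 14.9 and 14.4 in hypoxia (log2 fold change -0.48 ± 0.10, adjusted p = 0.00371).

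Of 18 lysyl oxidases and collagen hydroxylases, 9 were higher and 0 lower (median 0.31). Plod1, a lysyl hydroxylase, was at 44, 54.5, 50 and 42.2 CPM in room air and 108, 98.2, 87.4 and 92.7 in hypoxia (log2 fold change 1.02 ± 0.10, adjusted p = 1.43e-06). Serpinh1, the collagen chaperone HSP47, was at 378, 598, 467 and 402 CPM in room air and 846, 696, 779 and 798 in hypoxia (log2 fold change 0.76 ± 0.16, adjusted p = 0.00251). P4ha1, a prolyl hydroxylase subunit, was at 151, 228, 241 and 145 CPM in room air and 330.5, 249.9, 278 and 399 in hypoxia (log2 fold change 0.72 ± 0.19, adjusted p = 0.0147). P4ha1 lost its call without room air 1 or hypoxia 4 (adjusted p = 0.0503 to 0.0564). The oxidases act later, outside the cell. Loxl2, a crosslinking oxidase, was at 17, 15.6, 14 and 13.5 CPM in room air and 26.4, 23.6, 21.9 and 21.3 in hypoxia (log2 fold change 0.63 ± 0.12, adjusted p = 0.00129). The count fell to 3 without room air 3 and 4 and hypoxia 1.

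The interstitial collagens themselves had 1 of 12 higher and 1 lower (median -0.09). Col1a1, Col1a2 and Col3a1 had log2 fold changes of -0.03 ± 0.22, -0.12 ± 0.15 and -0.25 ± 0.15 and did not pass. The summed level of all 12 was highest in hypoxia sample 1 at 2176 CPM and lowest in hypoxia sample 4 at 1408. Without hypoxia 1 and 2, 4 of the 12 collagens were called lower. In basement membranes 4 of 20 genes were higher and 1 lower. Col4a2, which forms trimers with Col4a1, was at 662, 667, 582 and 568 CPM in room air and 1195, 1027, 859.9 and 866 in hypoxia (log2 fold change 0.67 ± 0.11, adjusted p = 0.000272). Lamb2, a laminin chain, was at 187, 212, 195 and 175 CPM in room air and 329, 282, 245 and 248 in hypoxia (log2 fold change 0.52 ± 0.12, adjusted p = 0.00612). Lamb2 did not pass in any of the 3 fits that left out 2 or 3 samples (adjusted p up to 0.164). Col4a6 was lower at 31.4, 34.1, 36.7 and 38 CPM in room air and 26.3, 26.2, 22.1 and 25.1 in hypoxia (log2 fold change -0.49 ± 0.09, adjusted p = 0.000643).

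Genes of the oxygen-sensing system itself were called no more often than genes over all, of which 17% were called. Hypoxia-inducible factors (HIF) are stabilised when prolyl hydroxylases lack oxygen, and their own regulation is largely on protein. Of 11 subunits and sensors, 0 were higher and 1 lower, near the shares of 7.94% and 9.1% over all genes. The lower gene was Cited2, a HIF brake. Its groups overlapped, and Cited2 lost its call without room air 1 or 2 or hypoxia 2, 3 or 4 (adjusted p = 0.0584 to 0.0885). Hif1a, Epas1 and Egln3, a sensor that is itself a HIF target, had log2 fold changes of 0.15 ± 0.08, -0.44 ± 0.18 and -0.84 ± 0.30 and did not pass. Egln3 passed without hypoxia 1 (adjusted p = 0.0385). HIF targets outside glycolysis had 8 of 24 higher and 1 lower (median 0.24), or 5 higher without room air 3 and 4 and hypoxia 1. Edn1, the vasoconstrictor endothelin 1 (chr13:42301476-42307990), was at 43.1, 42.2, 35.4 and 29 CPM in room air and 95.3, 81.8, 107 and 86.5 in hypoxia (log2 fold change 1.31 ± 0.24, adjusted p = 0.00152). Ndufa4l2, which lowers complex I activity, was at 16.2, 17.9, 17.1 and 19.7 CPM in room air and 30.7, 27.3, 26.9 and 26.3 in hypoxia (log2 fold change 0.65 ± 0.11, adjusted p = 0.000405). The common HIF readouts Vegfa, Adm, Car9 and Bnip3 did not pass (-0.16, -0.05, -0.79 and 0.43).

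Glycolysis genes divided evenly, with 4 of 23 higher and 4 lower (median -0.02). Pkm was at 190.1, 189.6, 194 and 207 CPM in room air and 271, 269, 268 and 278 in hypoxia (log2 fold change 0.48 ± 0.11, adjusted p = 0.00477). Ldha was at 118, 136, 138 and 127 CPM in room air and 156, 163, 161 and 171 in hypoxia (log2 fold change 0.33 ± 0.10, adjusted p = 0.0271). Ldha lost its call without room air 1 or 4 or hypoxia 2, 3 or 4 (adjusted p = 0.0539 to 0.0935). Ldhb, the lactate dehydrogenase that favours pyruvate, was lower at 61.3, 50.9, 63.1 and 54.5 CPM in room air and 39, 34.2, 32.5 and 38.2 in hypoxia (log2 fold change -0.67 ± 0.11, adjusted p = 0.000377). The glucose transporter Slc2a3 was lower too, at 26.4, 30.3, 25.9 and 42.5 CPM in room air and 18.3, 17.1, 19.4 and 13.6 in hypoxia (log2 fold change -0.87 ± 0.18, adjusted p = 0.00272). Slc2a1, Hk2, Pgk1 and Pfkfb3 did not pass (-0.33, 0.11, -0.02 and -0.21). Slc2a1 passed without hypoxia 1 (adjusted p = 0.00816). Of 52 nuclear genes of the respiratory chain, 0 were called in edgeR's test and 1 had an unadjusted p under 0.05, with a median of -0.01. In sterol synthesis 4 of 23 were higher and 0 lower, led by Pmvk, phosphomevalonate kinase, at 33.4, 40.8, 58.6 and 48.8 CPM in room air and 111, 71.7, 84.2 and 125 in hypoxia (log2 fold change 1.11 ± 0.20, adjusted p = 0.000972).

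Mediators of vessel tone changed selectively. Endothelin 1 contracts pulmonary arteries, and its endothelial receptor Ednrb clears it and releases nitric oxide. In the endothelin system 1 of 7 genes was higher and 3 lower. Ednrb, which is also on the aerocyte list, was at 173, 143, 159 and 170.3 CPM in room air and 60.9, 55.1, 61.3 and 49.3 in hypoxia (log2 fold change -1.51 ± 0.12, adjusted p = 1.58e-07), with the groups far apart. Beside the higher Edn1, the converting enzyme Ece1 was lower at 470, 466, 412 and 380.3 CPM in room air and 409.5, 341, 266 and 287 in hypoxia, with overlap between the groups (log2 fold change -0.41 ± 0.13, adjusted p = 0.0339), and the muscle receptor Ednra did not pass (-0.12 ± 0.10). Ece1 lost its call without room air 1, 2 or 3 or hypoxia 2, 3 or 4 (adjusted p = 0.051 to 0.122). In the nitric oxide system 2 of 17 genes were higher and 3 lower. Nos3, the gene of endothelial nitric oxide synthase, was called higher here and in all 23 alternative settings, by more than 2-fold in each. Gch1, which makes the cofactor of nitric oxide synthases, was at 17.1, 26.3, 24.1 and 21.1 CPM in room air and 32.8, 33.1, 28.8 and 33.2 in hypoxia (log2 fold change 0.54 ± 0.11, adjusted p = 0.00188). Pde5a, the phosphodiesterase that degrades cyclic GMP and is the target of sildenafil, was at 456, 423, 410.5 and 442 CPM in room air and 335, 323, 345 and 299 in hypoxia (log2 fold change -0.41 ± 0.09, adjusted p = 0.00434). The soluble guanylate cyclase genes Gucy1a3 and Gucy1b3 did not pass (-0.14 ± 0.09 and -0.16 ± 0.10).

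None of 22 measured arginine and polyamine genes was called in edgeR's test, and 4 had an unadjusted p under 0.05. Arg1, the cytosolic arginase, was at 1.62, 1.59, 2.07 and 1.83 CPM in room air and 1.15, 1.59, 1.64 and 1.44 in hypoxia (log2 fold change -0.31 ± 0.32, adjusted p = 0.577), and its groups overlapped. Odc1 and Oat, the enzymes that take ornithine onward, had log2 fold changes of -0.14 ± 0.14 and 0.22 ± 0.09. The arginine transporters Slc7a1 and Slc7a2 had -0.05 ± 0.13 and 0.15 ± 0.10.

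The prostanoid pathway had 2 of 23 genes higher and 6 lower. Hpgd, the enzyme that inactivates prostaglandins (chr8:56294585-56321043), was at 652, 642, 560 and 649 CPM in room air and 222, 285, 247 and 217 in hypoxia (log2 fold change -1.37 ± 0.17, adjusted p = 3.79e-05). It was the most abundant gene of the list, and all 4 hypoxia samples lay below all 4 room air samples. Tbxa2r, the thromboxane receptor, was at 7.56, 8.87, 6.68 and 8.66 CPM in room air and 4.21, 6.31, 3.5 and 3.85 in hypoxia (log2 fold change -0.82 ± 0.18, adjusted p = 0.00288). Ptgs1, a cyclooxygenase, was higher at 93.4, 117, 101 and 112 CPM in room air and 142, 130.3, 132 and 144 in hypoxia (log2 fold change 0.38 ± 0.08, adjusted p = 0.0032). Prostacyclin synthase Ptgis and its receptor Ptgir did not pass (0.21 and 0.24). Ptgir passed without room air 1 (adjusted p = 0.0496). In the renin-angiotensin system Ace was at 979.7, 1020, 833 and 849 CPM in room air and 1392, 1263, 1115 and 1067 in hypoxia (log2 fold change 0.39 ± 0.11, adjusted p = 0.0138). Ace lost its call without room air 3 or hypoxia 1 (adjusted p = 0.0512 to 0.0531). It did not pass with room air 3 and 4 left out together, nor with hypoxia 1 and 2 left out together. In the serotonin pathway 1 of 10 genes was called, the degrading enzyme Maob, at -0.27 ± 0.08. Maob lost its call without room air 3 or 4 or hypoxia 1, 2 or 3 (adjusted p = 0.0542 to 0.111).

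Signals of the BMP family, in which loss of the receptor Bmpr2 causes heritable pulmonary hypertension, moved both ways: 5 of 26 genes were higher and 6 lower. Bmp2 was at 5.28, 5.04, 6.12 and 3.85 CPM in room air and 10.3, 9.77, 7.85 and 10.7 in hypoxia (log2 fold change 0.92 ± 0.19, adjusted p = 0.00202), in contrast to Bmp6 above. The target genes Id1 and Id3, inhibitors of differentiation, were higher. Id3 was at 132, 131, 129.8 and 82.8 CPM in room air and 201, 192, 167 and 207 in hypoxia (log2 fold change 0.69 ± 0.13, adjusted p = 0.00109). Id1 was at 92.8, 102, 108 and 82.2 CPM in room air and 151, 134, 121 and 146 in hypoxia (log2 fold change 0.52 ± 0.12, adjusted p = 0.00578). Id1 did not pass without hypoxia 1 and 2, nor without room air 3 and 4 and hypoxia 1 (adjusted p up to 0.0865). The Id genes did not all move one way. Id4 was lower at 9.39, 6.95, 6.33 and 7.36 CPM in room air and 3.62, 4.89, 3.56 and 3.97 in hypoxia (log2 fold change -0.91 ± 0.20, adjusted p = 0.00314). The receptors Bmpr2 and Bmpr1a did not pass (-0.47 ± 0.16 and 0.04 ± 0.11), while Acvrl1 was lower at 577, 606, 560.4 and 540 CPM in room air and 533, 509.6, 436 and 398 in hypoxia (log2 fold change -0.28 ± 0.09, adjusted p = 0.0379). Bmpr2 passed without room air 4 (adjusted p = 0.0468). Acvrl1 lost its call without room air 1, 2 or 3 or hypoxia 3 or 4 (adjusted p = 0.0644 to 0.142). In the TGF-beta system 3 of 21 were higher and 1 lower, with Tgfbr2 at 395, 392, 337 and 363 CPM in room air and 495, 447, 449 and 443 in hypoxia (log2 fold change 0.30 ± 0.08, adjusted p = 0.00879), and the target Ctgf did not pass (-0.08). Tgfbr2 did not pass in any of the 3 fits that left out 2 or 3 samples (adjusted p = 0.0832 to 0.27).

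Notch signalling, which directs arterial and mural identity, had 3 of 16 genes higher and 0 lower. Jag2, a ligand, was at 30.9, 28.7, 32.3 and 34.1 CPM in room air and 82.7, 82.6, 74.5 and 63.1 in hypoxia (log2 fold change 1.26 ± 0.12, adjusted p = 7.61e-07). Hey2, a repressor activated by Notch, was at 4.89, 2.02, 4.51 and 4.16 CPM in room air and 11.6, 10.4, 10.3 and 10.5 in hypoxia (log2 fold change 1.43 ± 0.21, adjusted p = 0.000121). Hey1 was at 71.9, 71, 79.1 and 49.3 CPM in room air and 101, 118, 104 and 108 in hypoxia (log2 fold change 0.67 ± 0.17, adjusted p = 0.0112). Hey1 did not pass in any of the 3 fits that left out 2 or 3 samples (adjusted p up to 0.0792). The receptors Notch1 to Notch4 did not pass, at 0.03, -0.36, 0.58 and -0.05 in that order. Notch2 passed without hypoxia 1 (adjusted p = 0.0163).

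Wnt genes had 1 of 31 higher and 5 lower. Dkk3, a secreted modulator, was at 79, 89.5, 82.7 and 81.8 CPM in room air and 122, 109.9, 119 and 102 in hypoxia (log2 fold change 0.44 ± 0.07, adjusted p = 0.000378). Lef1, a transcription factor of the pathway that T cells also express, was at 8.71, 5.84, 8.46 and 8.81 CPM in room air and 5.33, 4.51, 3.95 and 3.43 in hypoxia (log2 fold change -0.90 ± 0.17, adjusted p = 0.00127). The target Axin2 did not pass (0.25 ± 0.15). Wnt9b was not on the list. Among PDGF and FGF genes 2 of 20 were higher and 6 lower. Pdgfd was at 26.6, 20.4, 28.1 and 25.9 CPM in room air and 36.4, 49.4, 44.3 and 40.9 in hypoxia (log2 fold change 0.75 ± 0.12, adjusted p = 0.000279). Fgfr2, the epithelial FGF receptor, was at 281, 272, 289 and 277 CPM in room air and 222, 221, 219 and 231 in hypoxia (log2 fold change -0.33 ± 0.07, adjusted p = 0.00449). The feedback inhibitor Spry1 was at 121, 97, 93.6 and 85.1 CPM in room air and 82.7, 69.4, 69.1 and 75.1 in hypoxia (log2 fold change -0.42 ± 0.10, adjusted p = 0.00754). For Pdgfd, Fgfr2 and Spry1 the groups did not overlap. Fgfr2 did not pass without room air 3 and 4, nor with hypoxia 1 left out as well (adjusted p up to 0.0825). Pgf, placental growth factor, was at 3.81, 3.93, 4.07 and 4.92 CPM in room air and 9.31, 10.8, 10.3 and 9.14 in hypoxia (log2 fold change 1.24 ± 0.25, adjusted p = 0.00172), and Vegfa and Flt1 did not pass (-0.16 ± 0.07 and 0.06 ± 0.11).

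**Figure D3:**
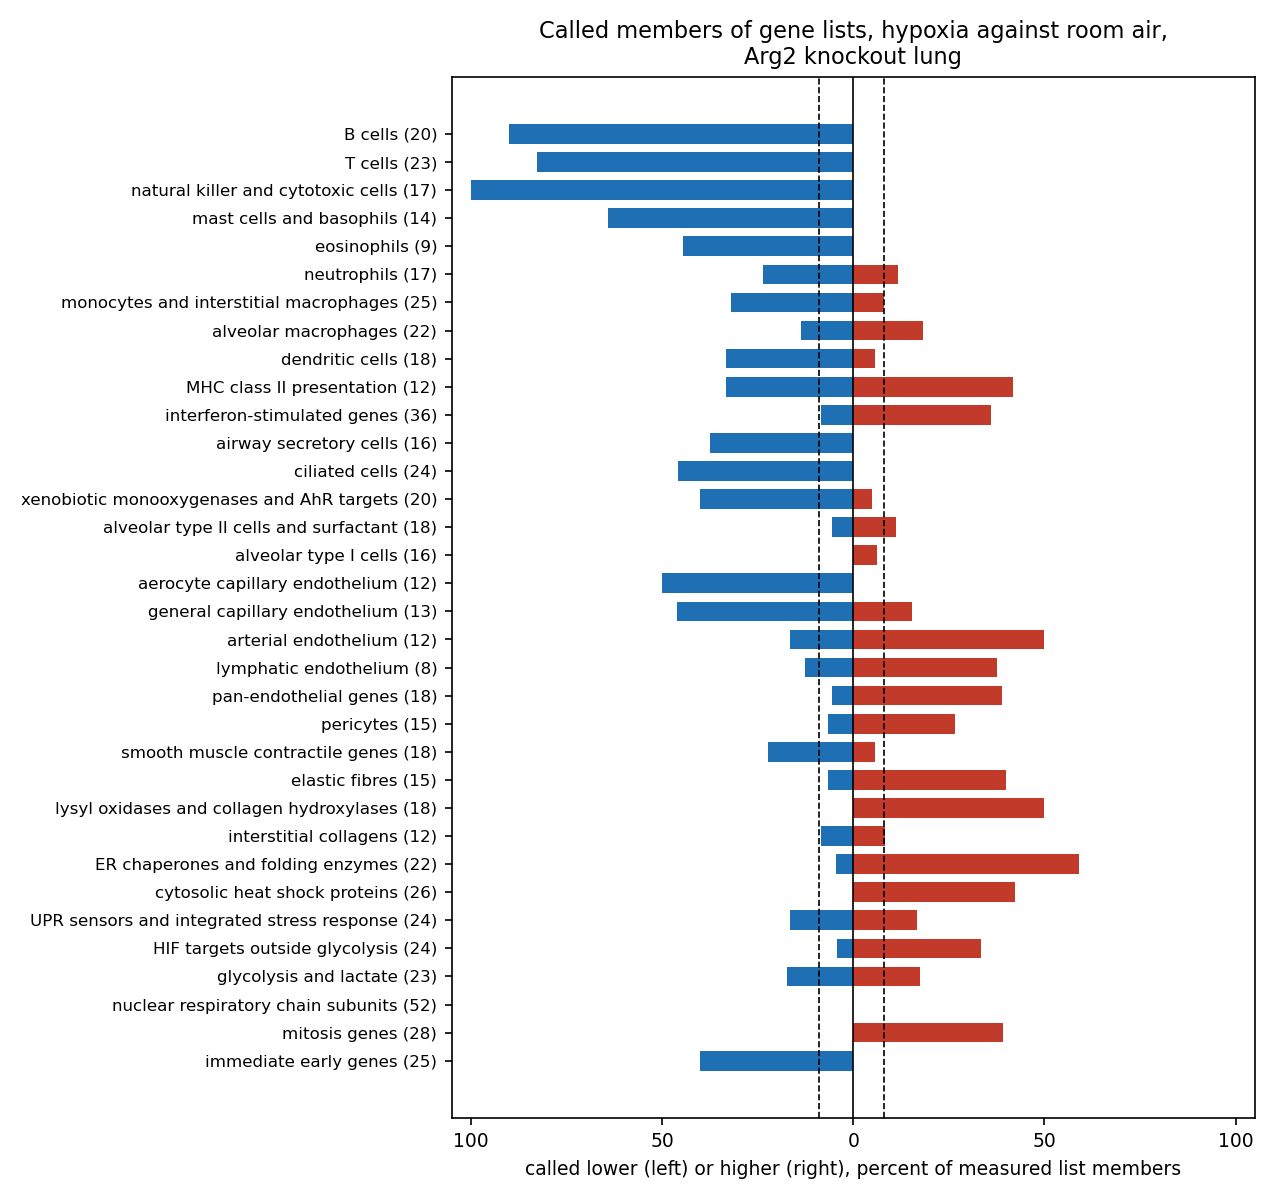
Percent of the measured members of 34 gene lists called higher (right) or lower (left) in hypoxia in Arg2 knockout lung, with the number measured in brackets. The dashed lines mark 7.94% and 9.1%, the shares over all genes; B, T and natural killer cell lists lie farthest to the left and ER chaperones farthest to the right.

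Genes of B, T and natural killer cells were mostly lower. B cells make antibodies, T cells recognise presented antigen and natural killer cells kill by granules. Of 20 B cell genes, 18 were lower and 0 higher (median -1.57). Of 23 T cell genes, 19 were lower and 0 higher (median -1.52), and of 17 natural killer and cytotoxic genes all 17 were lower (median -1.56). Of 7 plasma cell genes 2 were lower and 1, the ER gene Derl3, was higher, and their sum stayed between 268 and 288 CPM in all 8 samples. Ms4a1, which encodes CD20, was at 27.7, 32, 20 and 20.7 CPM in room air and 8.88, 11.3, 5.88 and 8.86 in hypoxia (log2 fold change -1.51 ± 0.25, adjusted p = 0.000493). Cd79b, a chain of the B cell receptor, was at 35.6, 29.4, 24 and 30.4 CPM in room air and 12.2, 13.4, 8.93 and 10.6 in hypoxia (log2 fold change -1.40 ± 0.26, adjusted p = 0.00164). T and natural killer cells signal through receptor chains of their own. Cd247, the zeta chain of the T cell receptor complex, was at 8.87, 10.2, 11.2 and 13.7 CPM in room air and 4.08, 3.42, 2.6 and 2.03 in hypoxia (log2 fold change -1.86 ± 0.24, adjusted p = 3.37e-05). Il2rb, a receptor chain of natural killer and memory T cells, was at 18.7, 26, 25.3 and 24.4 CPM in room air and 8.29, 8.6, 6.61 and 4.92 in hypoxia (log2 fold change -1.74 ± 0.22, adjusted p = 4.32e-05). In none of these did a hypoxia sample reach the lowest room air sample.

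The summed B cell genes were at 287, 279, 195 and 222 CPM in room air and 110.3, 125, 81.6 and 80.9 in hypoxia, and the summed natural killer genes at 134, 183, 182 and 155 CPM in room air and 55.5, 70.9, 51.4 and 42.5 in hypoxia. Ptprc, the leukocyte marker CD45, was at 315, 316, 303 and 367 CPM in room air and 166, 172, 184 and 184 in hypoxia (log2 fold change -0.88 ± 0.07, adjusted p = 2.5e-07). Cd8a shows a second feature of the T cell list: it was at 4.61, 4.83, 11.8 and 14 CPM in room air and 1.51, 2.8, 2.2 and 0.638 in hypoxia, so room air samples 3 and 4 were above 1 and 2. Rag1, a recombinase of developing lymphocytes that marks thymus and is off in mature T cells, was at 0.207, 0, 46.2 and 35.3 CPM in room air and 3, 0.668, 0.395 and 0.118 in hypoxia. Rag1 did not pass with all samples and was called lower without room air 1 or 2 (adjusted p = 0.0301 to 0.0302). Of the thymus genes, Ptcra and the thymic epithelial genes Foxn1 and Psmb11 were too low to be tested. Without room air 3 and 4 and hypoxia 1, 13 T cell, 17 B cell and 15 natural killer genes were called lower. Room air samples 1 and 2, with little or no Rag1, exceeded all 4 hypoxia samples for Cd247.

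Granulocyte genes were lower in part. Of 9 eosinophil genes 4 were lower and 0 higher. Emr4, an adhesion receptor of eosinophils and monocytes, was at 18.5, 20.8, 14.4 and 14.2 CPM in room air and 4.05, 3.38, 2.37 and 2.98 in hypoxia (log2 fold change -2.39 ± 0.18, adjusted p = 8.57e-08). Alox15, a lipoxygenase of eosinophils, was at 4.13, 2.6, 5.41 and 2.9 CPM in room air and 1.15, 0.292, 0.113 and 1.09 in hypoxia (log2 fold change -2.40 ± 0.45, adjusted p = 0.00119). Siglec5, Prg2, Ear1 and Ear2 on the same list did not pass (-0.04, 0.39, 0.00 and 0.15), and the ribonuclease genes Ear1 and Ear2 are close copies of each other. Of 14 mast cell and basophil genes, 9 were lower and 0 higher, and 4 to 5 were called lower under each choice of left-out samples. Il4, the cytokine of basophils, was at 0.493, 0.478, 0.442 and 0.496 CPM in room air and 0, 0, 0.0565 and 0 in hypoxia, so a single read was counted over the 4 hypoxia samples. Cpa3, a mast cell protease, was at 0.365, 0.902, 1.3 and 0.572 CPM in room air and 0.23, 0.251, 0.226 and 0.142 in hypoxia (log2 fold change -1.91 ± 0.53, adjusted p = 0.0171). Hdc, which makes histamine, was at 91.3, 128, 108 and 129.5 CPM in room air and 89, 70.6, 75.4 and 87.7 in hypoxia (log2 fold change -0.50 ± 0.15, adjusted p = 0.0239). Hdc lost its call without room air 2 or 4 or hypoxia 2 or 3 (adjusted p = 0.0694 to 0.0768). Cpa3 lost its call without room air 3 or hypoxia 4 (adjusted p = 0.068 to 0.0897).

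Neutrophil genes were uneven in room air. Of 17, 2 were higher and 4 lower, and the list summed to 628, 919, 918 and 1655 CPM in room air and 726, 630, 644 and 697 in hypoxia, with room air sample 4 apart from the other 7. Csf3r, the receptor for granulocyte colony-stimulating factor, was at 53.4, 62.1, 63 and 122 CPM in room air and 38.6, 22.3, 30.3 and 24.3 in hypoxia (log2 fold change -1.38 ± 0.34, adjusted p = 0.0134). S100a8 and S100a9, the most abundant of the list, did not pass (log2 fold change -1.01 ± 0.50, adjusted p = 0.197 for S100a8). Csf3r did not pass in any of the 3 fits that left out 2 or 3 samples. Without room air 3 and 4, 1 gene was called in each direction. Lcn2, on the list but also made by epithelium, was at 78.9, 101, 81.3 and 103 CPM in room air and 160.4, 149.6, 157 and 146 in hypoxia (log2 fold change 0.76 ± 0.09, adjusted p = 2.26e-05).

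Macrophage genes moved both ways. Of 22 alveolar macrophage genes 4 were higher and 3 lower (median -0.01). Chil3, a chitinase-like protein of alveolar macrophages, was at 561, 672, 617 and 629 CPM in room air and 879.6, 882, 989 and 1175 in hypoxia (log2 fold change 0.66 ± 0.11, adjusted p = 0.000417). Ctsk, cathepsin K, was at 25.7, 24.7, 26.3 and 27.7 CPM in room air and 50.4, 47.5, 43.1 and 55 in hypoxia (log2 fold change 0.91 ± 0.16, adjusted p = 0.000719). The lower ones were Fabp4, Car4 and Lpl, of which Car4 and Lpl are also on the capillary lists. In monocytes and interstitial macrophages 8 of 25 were lower and 2 higher. Treml4 and Spn are genes of patrolling monocytes. Treml4 was at 6.53, 10, 7.44 and 7.52 CPM in room air and 3.13, 1.71, 2.09 and 2.43 in hypoxia (log2 fold change -1.73 ± 0.20, adjusted p = 1e-05). Spn was at 38.1, 44.2, 38.4 and 35 CPM in room air and 16.9, 14, 13.3 and 11.5 in hypoxia (log2 fold change -1.48 ± 0.12, adjusted p = 2.5e-07). The complement genes C1qa, C1qb and C1qc did not pass (0.14, 0.18 and 0.17). Among 18 dendritic cell genes 1 was higher and 6 lower, with Siglech of plasmacytoid cells at 6.67, 3.56, 6.63 and 7.17 CPM in room air and 2.7, 1.84, 1.92 and 2.06 in hypoxia (log2 fold change -1.50 ± 0.22, adjusted p = 9.05e-05).

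Antigen presentation by MHC class II gave 5 of 12 genes higher and 4 lower. The lower genes were H2-Oa, H2-Ob, H2-DMb2 and H2-Eb2. H2-Eb2 lost its call without room air 1 or hypoxia 4 (adjusted p = 0.0518 to 0.0541). H2-Oa and H2-Ob modulate peptide loading in B cells, and H2-Ob was at 34.8, 34, 19.9 and 26.2 CPM in room air and 11.8, 17.4, 10.6 and 11.6 in hypoxia (log2 fold change -1.16 ± 0.22, adjusted p = 0.00135). Cd74, the invariant chain made by many cells including alveolar type II cells, was higher at 892, 1061, 909 and 1150 CPM in room air and 1611, 1613, 1375 and 1479 in hypoxia (log2 fold change 0.60 ± 0.13, adjusted p = 0.00426). Ciita, the class II transactivator, was at 39.5, 42.8, 35.3 and 32.7 CPM in room air and 62.9, 86.8, 54.3 and 53.9 in hypoxia (log2 fold change 0.78 ± 0.19, adjusted p = 0.00836). Ciita did not pass in any of the 3 fits that left out 2 or 3 samples (adjusted p up to 0.153). The 5 higher calls dropped to 1 without room air 3 and 4 and to 0 without hypoxia 1 and 2.

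Interferon-stimulated genes had 13 of 36 higher and 3 lower (median 0.17), and 7 to 9 higher with samples left out. Gbp4, Igtp and Irgm1 are GTPases of the interferon gamma response. Gbp4 was at 59.7, 62.5, 56 and 48 CPM in room air and 109, 219.5, 126 and 131 in hypoxia (log2 fold change 1.37 ± 0.19, adjusted p = 0.000112). Igtp was at 37.3, 42.2, 40.5 and 39.1 CPM in room air and 71.6, 113, 69.7 and 78.7 in hypoxia (log2 fold change 1.07 ± 0.20, adjusted p = 0.00153). Irgm1 was at 49.6, 49.2, 52.3 and 45.9 CPM in room air and 61.7, 99.6, 71.2 and 79 in hypoxia (log2 fold change 0.66 ± 0.13, adjusted p = 0.00192). Hypoxia sample 2 was the highest in all 3. Oas2 was higher at 11.1, 12.4, 12.6 and 9.39 CPM in room air and 35.2, 41.3, 34.9 and 35.5 in hypoxia (log2 fold change 1.69 ± 0.20, adjusted p = 2.26e-05). Its relative Oas3 was lower at 7.5, 10.5, 7.11 and 6.41 CPM in room air and 3.23, 4.93, 4.29 and 2.74 in hypoxia (log2 fold change -1.06 ± 0.25, adjusted p = 0.00653). Isg15 and Irf7 did not pass (0.08 and -0.10). Among chemokines, Cx3cl1, the tethered chemokine fractalkine, was at 53.2, 50.3, 47.5 and 42.7 CPM in room air and 25.2, 19.2, 18.6 and 15.2 in hypoxia (log2 fold change -1.31 ± 0.13, adjusted p = 2.3e-06). The alarmin Il33 was at 131, 178, 180 and 128 CPM in room air and 285, 224, 286 and 344 in hypoxia (log2 fold change 0.88 ± 0.17, adjusted p = 0.0018).

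Alveolar epithelial markers were called no more often than genes over all, of which 17% were called. Of 18 type II genes 2 were higher and 1 lower, close to that share, with Sftpc and Sftpb at log2 fold changes of 0.13 ± 0.11 and 0.05 ± 0.09. Sftpd, the collectin surfactant protein, was at 875, 966, 1004 and 1040 CPM in room air and 1307, 1176, 1265 and 1493 in hypoxia (log2 fold change 0.43 ± 0.10, adjusted p = 0.00652). Of 16 type I genes 1 was called, Igfbp2, a binding protein of insulin-like growth factors, at 181, 178, 185 and 216 CPM in room air and 387, 381, 339 and 468 in hypoxia (log2 fold change 1.05 ± 0.14, adjusted p = 3.72e-05).

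Airway genes were lower where they changed. Of 16 secretory genes 6 were lower and 0 higher, and of 24 ciliated cell genes 11 were lower and 0 higher (median -0.46). Cyp2f2, the monooxygenase typical of club cells, was at 2049, 1916, 2239 and 1988 CPM in room air and 1370, 1244, 1097 and 1240 in hypoxia (log2 fold change -0.73 ± 0.14, adjusted p = 0.00142). Lypd2 was at 33.8, 35.4, 50.2 and 36.3 CPM in room air and 12.1, 15.4, 9.66 and 12.8 in hypoxia (log2 fold change -1.64 ± 0.17, adjusted p = 3.06e-06). Scgb1a1, the most abundant club cell gene, did not pass (log2 fold change -0.19 ± 0.14, adjusted p = 0.414). Bpifa1, a secreted defence protein of large airways, was at 211, 243, 762 and 183 CPM in room air and 53, 52.4, 10.1 and 31.7 in hypoxia, and room air sample 3 stood above the rest (log2 fold change -3.24 ± 0.73, adjusted p = 0.00852). Cilia are built on microtubules and beat by dynein motors. Tppp3, a microtubule gene of cilia, was at 298, 321, 328 and 308 CPM in room air and 236, 218, 237 and 223 in hypoxia (log2 fold change -0.46 ± 0.08, adjusted p = 0.000667). The dynein gene Dnah5 was at 174, 159, 181 and 149 CPM in room air and 116, 139.7, 118 and 119 in hypoxia (log2 fold change -0.43 ± 0.14, adjusted p = 0.0364). Dnah5 lost its call without room air 1, 2 or 3 or hypoxia 1, 3 or 4 (adjusted p = 0.0566 to 0.0987). Foxj1, the factor that switches on ciliogenesis, did not pass (log2 fold change -0.11 ± 0.16, adjusted p = 0.712). The ciliated count was 4 without room air 3 and 4 and hypoxia 1.

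Of 20 monooxygenases and related genes of foreign compounds, 8 were lower, 1 was higher and 11 did not pass. Cyp4b1 was at 623, 583, 632 and 608 CPM in room air and 336, 321, 323 and 332 in hypoxia (log2 fold change -0.90 ± 0.08, adjusted p = 8.83e-07). Aldh3a1 was at 36.4, 35.5, 42.4 and 36.7 CPM in room air and 19.4, 17.3, 17.7 and 17.2 in hypoxia (log2 fold change -1.08 ± 0.17, adjusted p = 0.000241). Cyp2b10 was the exception, higher at 279, 283, 281 and 304 CPM in room air and 346, 363, 389.7 and 391 in hypoxia (log2 fold change 0.38 ± 0.12, adjusted p = 0.0311). Cyp2b10 lost its call without room air 1, 2 or 3 or hypoxia 2, 3 or 4 (adjusted p = 0.0538 to 0.0828). The receptor Ahr did not pass (-0.03 ± 0.18).

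Some genes of mitosis rose. Of 28 mitosis genes 11 were higher and 0 lower (median 0.62), and of 27 replication genes 1 was higher and 0 lower (median 0.05). Prc1, which organises the dividing spindle, was at 7.06, 6.16, 9.99 and 9.12 CPM in room air and 11.2, 17.9, 16.1 and 14.7 in hypoxia (log2 fold change 0.88 ± 0.17, adjusted p = 0.00132). Aurkb, a mitotic kinase, was at 2.43, 0.849, 2.77 and 2.02 CPM in room air and 4.01, 5.89, 5.14 and 3.26 in hypoxia (log2 fold change 1.12 ± 0.31, adjusted p = 0.0152). Aurkb lost its call without hypoxia 2 (adjusted p = 0.0555). Tyms, thymidylate synthase, was the replication gene that passed, at 6.64, 5.31, 7.2 and 5.68 CPM in room air and 7.93, 9.44, 9.83 and 10.3 in hypoxia (log2 fold change 0.59 ± 0.15, adjusted p = 0.00836). Mitosis and replication take place in different phases of the cell cycle. The summed mitosis genes were at 213, 194, 308 and 279 CPM in room air and 308, 516, 382 and 406 in hypoxia, so room air samples 3 and 4, the samples with the high Rag1, were above 1 and 2. Without room air 3 and 4, 15 mitosis genes were called higher. Among clustered histone genes 4 of 22 were higher and 0 lower, with the linker histone Hist1h1c at 143, 106, 130.2 and 149 CPM in room air and 179.7, 229, 214 and 218 in hypoxia (log2 fold change 0.67 ± 0.15, adjusted p = 0.00369), and near-identical copies make single histone genes uncertain.

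Immediate early genes, which respond within minutes to handling and to growth signals, were lower: 10 of 25 against 0 higher (median -0.64), or 6 without hypoxia 1 and 2. Nr4a1 was at 128, 103, 58.1 and 55.5 CPM in room air and 36.5, 16.4, 18.1 and 17.5 in hypoxia (log2 fold change -1.96 ± 0.45, adjusted p = 0.00899). Jun was at 419, 335, 268 and 250.4 CPM in room air and 243, 179, 158 and 182 in hypoxia (log2 fold change -0.74 ± 0.16, adjusted p = 0.00402). Egr1 was at 102, 35.5, 22.1 and 20.6 CPM in room air and 21.6, 11.2, 9.72 and 11.9 in hypoxia, and room air sample 1 was far above the other 3 of its group (log2 fold change -1.73 ± 0.55, adjusted p = 0.049). Egr1 lost its call without room air 1 or 2 or hypoxia 2, 3 or 4 (adjusted p = 0.065 to 0.182). Fos and Fosb did not pass (log2 fold change -1.28 ± 0.59, adjusted p = 0.173 for Fos). Klf2, an endothelial factor of flow, did not pass either (-0.35 ± 0.21).

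Among 21 clock genes 1 was called, Ciart, a repressor of the clock, at 3.32, 2.87, 3.51 and 4.85 CPM in room air and 6.81, 7.43, 10.3 and 7.23 in hypoxia (log2 fold change 1.12 ± 0.34, adjusted p = 0.0305). Ciart lost its call without room air 1, 2 or 3 or hypoxia 2, 3 or 4 (adjusted p = 0.0517 to 0.089). Dbp and Per2 did not pass, with 0.76 ± 0.65 and 0.85 ± 0.48. Erythroid genes had 2 of 21 higher and 0 lower, both calls were lost without room air 3 and 4, and Alas2, the red cell enzyme of heme synthesis, did not pass (log2 fold change 0.50 ± 0.39, adjusted p = 0.439). Platelet genes had 0 of 18 higher and 5 lower. Ppbp, a platelet chemokine, was at 65.5, 66.5, 48.5 and 65.8 CPM in room air and 26.8, 35.4, 29.1 and 27.6 in hypoxia (log2 fold change -1.05 ± 0.19, adjusted p = 0.000984). Antioxidant genes had 3 of 28 higher and 3 lower. Gpx3, the secreted glutathione peroxidase, was at 442, 461, 362 and 419 CPM in room air and 741, 619.5, 688 and 604 in hypoxia (log2 fold change 0.66 ± 0.12, adjusted p = 0.00101), and Nqo1 did not pass (-0.40 ± 0.18). Of 42 ribosomal protein genes 0 were called in edgeR's test, and 3 had an unadjusted p under 0.05. Eda2r, a death receptor family member induced by p53, was at 6.33, 6.95, 5.92 and 2.94 CPM in room air and 10.7, 15.3, 14.3 and 13.8 in hypoxia (log2 fold change 1.28 ± 0.23, adjusted p = 0.000664).

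Markers of neighbouring organs differed between samples. Of 16 heart and pulmonary vein muscle genes 8 were lower and 0 higher, and they summed to 565, 499, 1168 and 496 CPM in room air and 456, 246, 224 and 219.9 in hypoxia, with room air sample 3 highest. Myl7, an atrial light chain, was at 59.1, 48.7, 113 and 49.9 CPM in room air and 30.3, 19.2, 14.6 and 21 in hypoxia (log2 fold change -1.67 ± 0.32, adjusted p = 0.00255). Pulmonary veins of mice contain heart muscle, so these genes also belong to lung as dissected. With room air 3 and 4 left out 2 were called lower, and with hypoxia 1 and 2 left out 8 were. Of 15 fat genes 10 were lower and 1 higher. Adipoq, adiponectin, was at 9.2, 10.6, 17.2 and 9.96 CPM in room air and 5.36, 4.51, 1.02 and 1.65 in hypoxia (log2 fold change -1.89 ± 0.50, adjusted p = 0.0166). Lep, leptin, was at 0.763, 0.743, 1.25 and 0.42 CPM in room air and 0.0329, 0.0418, 0 and 0 in hypoxia. Adipoq lost its call without room air 3 or hypoxia 4 (adjusted p = 0.0504 to 0.0567). Lipe, the hormone-sensitive lipase, was the fat gene that was higher, at 61.3, 61.5, 56 and 59.8 CPM in room air and 136, 121, 105 and 124 in hypoxia (log2 fold change 1.03 ± 0.13, adjusted p = 2.5e-05). The part of adipose tissue left on the lung in these values was not tested.

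Of the 19 pancreas genes on the list 4 were measured, and all 4 were called higher. They summed to 3.08, 2.71, 3.22 and 2.56 CPM in room air and 743, 53.9, 9.66 and 4.28 in hypoxia, so hypoxia sample 1 stood far above the rest and sample 2 next. All 4 were called without hypoxia 1, and 1 of them, Ctrl, without hypoxia 1 and 2. None of the 4 passed without room air 3 and 4, with limma voom, or with only the knockout samples in the fit. Skeletal muscle genes summed to 36.6, 16.7, 28.5 and 22 CPM in room air and 16.6, 11.4, 10.6 and 10.8 in hypoxia, with 0 of 13 called in edgeR's test and 0 at an unadjusted p under 0.05. Alb, the liver gene albumin, was at 0.381, 0.425, 1.22 and 1.07 CPM in room air and 1.65, 0.334, 0.452 and 12.4 in hypoxia and did not pass (log2 fold change 2.28 ± 1.07, adjusted p = 0.172). Trf, transferrin, is on the liver list but is made in lung as well, and was at 537, 583, 567 and 566 CPM in room air and 887, 1088, 1098 and 974 in hypoxia (log2 fold change 0.85 ± 0.08, adjusted p = 1.16e-06).

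**Figure D4:**
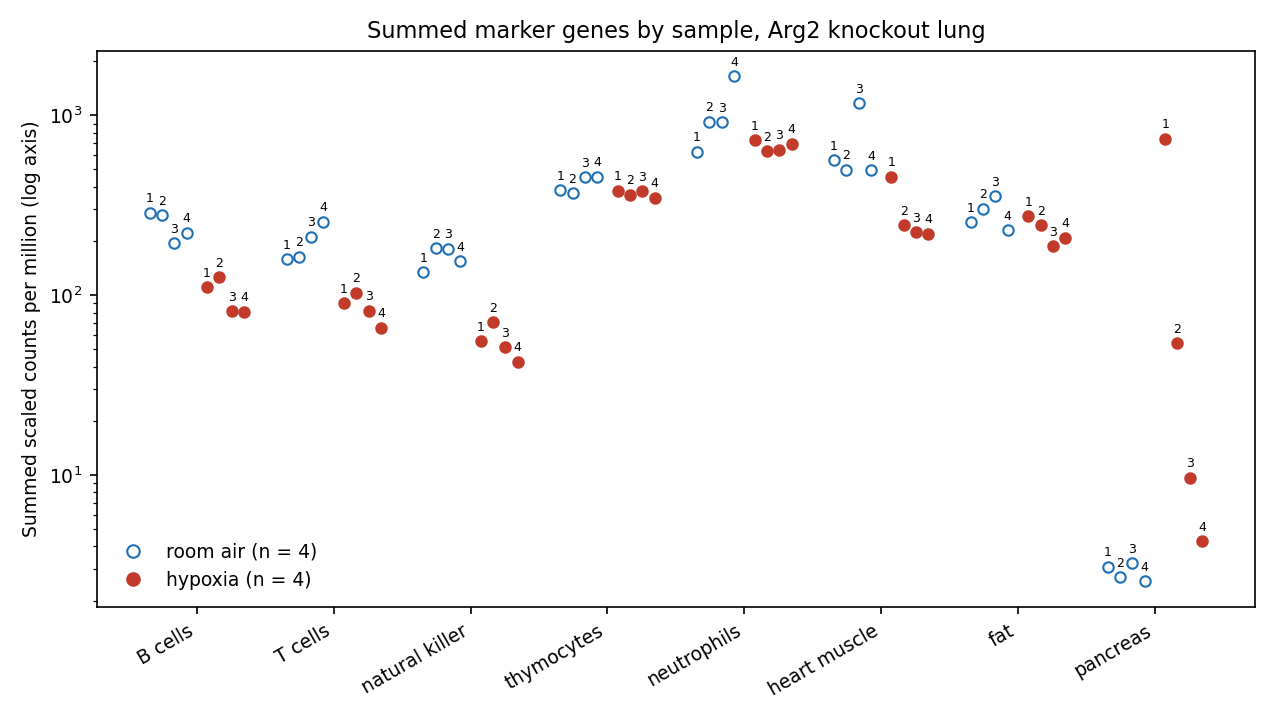
Summed scaled counts-per-million (log axis) of B cell, T cell, natural killer, thymocyte, neutrophil, heart muscle, fat and pancreas genes in each knockout sample; open circles are room air and filled circles hypoxia, labelled with the sample number. The B cell, T cell and natural killer sums separate the groups, and the thymocyte sum does not. The pancreas sum is highest in hypoxia sample 1 at 743.2 CPM and the neutrophil sum in room air sample 4 at 1655 CPM.

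The response was set against that of wild type by the test of the difference between the genotypes' effects. It called 79 genes, or 0.501% of those tested: 44 (0.279%) with the more positive effect in the knockout and 35 (0.222%) with the more negative one. Wild type room air sample 3 was the shallowest sample of the series at 9531270 counts, and 84 genes were called without it. The count was 26 without room air 1, 48 without hypoxia 1, 38 without hypoxia 3 and 43 without hypoxia 4. Of the 22 ER chaperones 4 were among them, and of the 26 cytosolic heat shock proteins 2. For Hspa5 the effect was 1.06 ± 0.13 in the knockout and -0.02 ± 0.12 in wild type, a difference of 1.08 ± 0.18, adjusted p = 0.00872. For Manf it was 1.14 ± 0.14 against -0.11 ± 0.14, a difference of 1.24 ± 0.20, adjusted p = 0.00813. Xbp1 and Ddit3 differed too, by 0.59 ± 0.12, adjusted p = 0.0356 and by 0.84 ± 0.18, adjusted p = 0.0455. Xbp1 lost this call without room air 1, 2 or 4 or hypoxia 1, 3 or 4 (adjusted p = 0.0528 to 0.0903). Ddit3 lost this call without room air 1, 2 or 4 or hypoxia 1, 2, 3 or 4 (adjusted p = 0.0604 to 0.108). For Fkbp4, an HSP90 co-chaperone, the difference was 1.07 ± 0.21, adjusted p = 0.0274. Fkbp4 lost this call without room air 1 or hypoxia 1 or 4 (adjusted p = 0.0607 to 0.0774). Each was called higher in the knockout, while the wild type effects of these 5 genes lay between -0.25 for Fkbp4 and -0.02 for Hspa5 and did not pass.

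Other genes with a more positive effect in the knockout were Fbln2, with 2.24 ± 0.15 against 1.06 ± 0.15 (difference 1.18 ± 0.21, adjusted p = 0.0153), and Mcf2l, a guanine nucleotide exchange factor, with 1.21 ± 0.15 against -0.17 ± 0.15 (difference 1.38 ± 0.22, adjusted p = 0.00802). Mcf2l was at 94.5, 98.6, 93 and 135 CPM in room air and 246, 247, 239 and 240.4 in hypoxia. The notch target Hey1 had 0.67 ± 0.17 against -0.65 ± 0.17 (difference 1.31 ± 0.24, adjusted p = 0.0201), the clock gene Ciart 1.12 ± 0.34 against -1.25 ± 0.35 (difference 2.37 ± 0.49, adjusted p = 0.0367), and Pmvk 1.11 ± 0.20 against -0.31 ± 0.20 (difference 1.42 ± 0.28, adjusted p = 0.0356). Ciart lost this call without room air 1, 2 or 3 or hypoxia 1, 2, 3 or 4 (adjusted p = 0.0547 to 0.0922). Pmvk lost this call without room air 1, 2 or 4 or hypoxia 1, 3 or 4 (adjusted p = 0.0507 to 0.0774). Hey1 lost this call without room air 1 (adjusted p = 0.0507). The uncharacterised gene 4930486L24Rik was at 4.62, 5.57, 5.96 and 4.69 CPM in room air and 16.2, 14.2, 17.5 and 17.9 in hypoxia (difference 1.74 ± 0.27, adjusted p = 0.00675).

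More negative effects in the knockout included genes of leukocytes. Serpina9, a serpin of germinal centre B cells, was at 3.8, 5.31, 5.11 and 4.04 CPM in room air and 0.79, 1.34, 0.847 and 1.04 in hypoxia, with a difference of -1.92 ± 0.31, adjusted p = 0.00802. Emr4 differed by -1.29 ± 0.25, adjusted p = 0.0206, and Slc2a6, a glucose transporter of leukocytes, by -1.79 ± 0.37, adjusted p = 0.0356. Slc2a6 lost this call without room air 1, 2 or 4 or hypoxia 1, 2, 3 or 4 (adjusted p = 0.051 to 0.0807). Emr4 lost this call without room air 1 or hypoxia 3 or 4 (adjusted p = 0.0538 to 0.0656). Themis, a T cell signalling gene, differed by -1.83 ± 0.39, adjusted p = 0.0392, with room air 3 and 4 again above 1 and 2: 4.28, 4.62, 10.1 and 9.2 CPM in room air and 1.78, 1.42, 1.52 and 1.8 in hypoxia. Themis lost this call without room air 3 or 4 or hypoxia 1, 2, 3 or 4 (adjusted p = 0.0647 to 0.0865). Ptprc was lower by more than in wild type, -0.88 ± 0.07 against -0.33 ± 0.07 (difference -0.55 ± 0.10, adjusted p = 0.0206), and so was the leukocyte integrin Itga4, -1.11 ± 0.09 against -0.52 ± 0.09 (difference -0.59 ± 0.13, adjusted p = 0.0473). Itga4 lost this call without room air 1, 2 or 4 or hypoxia 1, 2, 3 or 4 (adjusted p = 0.0574 to 0.108). Ptprc lost this call without room air 1 or hypoxia 1 (adjusted p = 0.0507 to 0.0521). Cdk19, a kinase of the Mediator complex, was at 157, 125, 103 and 117 CPM in room air and 467, 549.7, 445 and 545 in hypoxia and was called higher in both genotypes, with the smaller effect in the knockout (2.00 ± 0.12 against 2.95 ± 0.13, difference -0.95 ± 0.17, adjusted p = 0.012). The genotypes share no control samples, and lists whose share of called genes differs without such a test are not shown to differ.

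**Figure D5:**
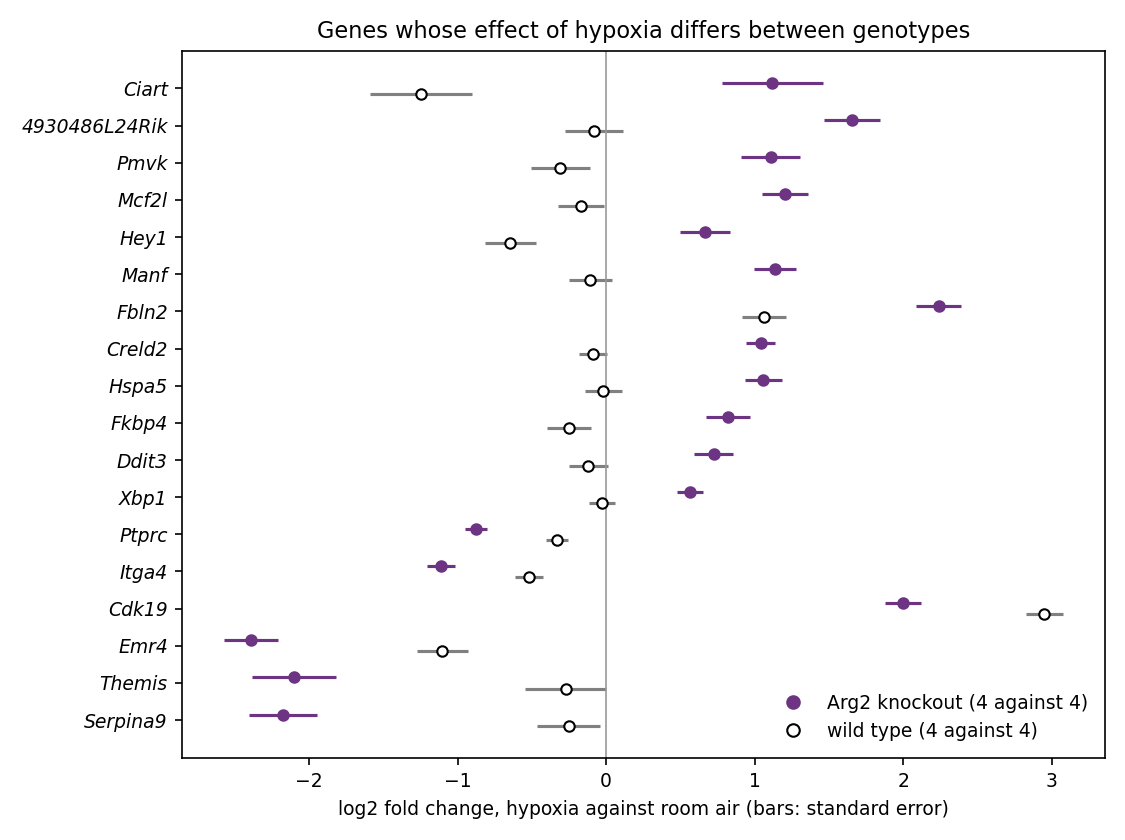
Log2 fold change of hypoxia against room air with its standard error in Arg2 knockout (filled) and wild type (open) lung, for 18 genes called for the difference between the 2 effects. Genes are ordered by that difference, from the most negative to the most positive in the knockout.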

How the data were processed

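Total RNA of frozen lung, depleted of ribosomal RNA and made into directional libraries per the labels' protocols, was sequenced in 20 libraries of 16 samples. Per the submitters' processing notes, the tools were Trim Galore, TopHat2 and HTSeq with the genome build mm10; no source used here gives their versions or whether counting used strand, so reads of overlapping or antisense genes cannot be told apart. The deposited values are whole-number counts of reads per gene. Rows that name no gene were dropped. Of reads in genes, in no gene or in several genes at once, 37.4% to 54.3% lay in genes in the knockout samples. That share leaves out alignments that were not unique. Their count per read in genes was 2.65, 3.98, 3.41 and 3.38 in room air and 3.24, 3.75, 6.33 and 4.55 in hypoxia. A count of 0 allowed 0.0474 to 0.169 CPM, from 3 counts, which covers counting error only. Libraries lettered A and B of one number were summed on the assumption that they repeat 1 animal, which the labels do not state.

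Genes passing filterByExpr (minimum count 10, minimum total 15) were tested with edgeR 4.0.16 in R 4.3.3: TMM scaling, robust quasi-likelihood fit of all 16 samples in 4 groups, contrasts for hypoxia in the knockout and for the difference between the genotypes' effects, Benjamini-Hochberg adjustment. The 15766 tested genes had a biological coefficient of variation of 15.8%. limma 3.58.1 and DESeq2 1.42.0 were alternatives. Symbols were matched to GENCODE vM21 (98.4% of 24062), and promoter windows came from RefSeq on GRCm38.p6. The model was also run on simulated counts with set changes in some genes. These held no markers of other tissues in single samples, so the run does not bear on that feature of the data. Sex chromosome check genes were left out of counts.

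The genes named were Arg2, the 15 highest and 15 lowest called fold changes without overlap at 1 CPM or more, the 10 and 10 at 100 CPM or more, up to 6 called members of each list, members of short lists, and the 8 most positive and 8 most negative differences between genotypes. Of 277 genes described with a value, 86 outside that rule were chosen after their values were seen. All lists and members were chosen with earlier results of these data known.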

Additional observations from a re-analysis of the deposited data

Results flagged for a closer look

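Within the knockout groups, a sample was listed when its gap to the nearest other sample of its group took up more of the group's whole range than Dixon's 95% critical value for 4 samples allows. This held in 37 of 540 groups of 4 values examined, or 6.85%, where chance alone lists about 1 in 20. Values are in CPM.

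Room air sample 3 was highest for Bpifa1 (762), Lypd2 (50.2), Adipoq (17.2), Myl7 (113) and the heart muscle sum (1168), and lowest for Ppbp (48.5), Atf3 (40.1), Hpgd (560) and the prostanoid sum (1067). Room air sample 4 was highest for Csf3r (122), Mcf2l (135), Atf4 (255), Cd34 (207) and Cyp2b10 (304), and lowest for Id3 (82.8) and Rbm3 (12.3). In room air sample 1 Kdr was high (628), and in sample 2 Lef1 (5.84) and Siglech (3.56) were low.

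In hypoxia, sample 1 was highest for the pancreas sum (743), the heart muscle sum (456), the skeletal muscle sum (16.6), Nr4a1 (36.5), Hey2 (11.6), Tgfbr2 (495) and Sstr2 (0.494). Sample 2 was highest for Oas2 (41.3) and Dnah5 (139.7) and lowest for Lyve1 (188). Sample 3 was lowest for Gch1 (28.8) and alone had a read of Il4 (0.0565). Sample 4 was highest for Alb (12.4), Xbp1 (376) and Atf4 (172) and lowest for Fmo1 (149), Hhip (24.8) and the pericyte sum (1839).

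The effect of hypoxia differed between genotypes, by the test of the difference in edgeR at an adjusted p under 0.05, for 20 of the genes described with values. The difference on the log2 scale, knockout minus wild type, was positive for Ciart (2.37), 4930486L24Rik (1.74), Pmvk (1.42), Mcf2l (1.38), Hey1 (1.31), Manf (1.24), Fbln2 (1.18), Hspa5 (1.08), Fkbp4 (1.07), Id1 (0.86), Ddit3 (0.84), Plod1 (0.65) and Xbp1 (0.59). It was negative for Serpina9 (-1.92), Themis (-1.83), Slc2a6 (-1.79), Emr4 (-1.29), Cdk19 (-0.95), Itga4 (-0.59) and Ptprc (-0.55). Id1 lost this call without room air 1 or 4 or hypoxia 1 or 4 (adjusted p = 0.0605 to 0.0784). Plod1 lost it without room air 1, 3 or 4 or hypoxia 1, 2, 3 or 4 (adjusted p = 0.0569 to 0.107).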

How the results depend on the processing

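In the 23 alternatives to the edgeR quasi-likelihood fit, 0 of the 2685 calls for hypoxia in the knockout reversed to a call in the other direction. The number called was 2011 to 2504 with 1 knockout sample left out (952 to 1143 higher, 1059 to 1361 lower), and 2184 to 3424 over the other scalings, filters, tests and library choices. With room air 3 and 4 left out, 1566 genes were called, 695 higher and 871 lower. With hypoxia 1 and 2 left out, 1812 were called, 815 of them higher. With room air 3 and 4 and hypoxia 1 left out, a choice made after seeing the data, 1479 were called, 623 higher and 856 lower. These settings have fewer samples. The difference between genotypes moved most: 79 genes became 484 with DESeq2, 145 with a replicate block, 185 with the GC trend removed, 43, 20 and 22 in the 3 settings above, and 26 to 72 with 1 knockout sample left out. The cause was not tested.

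The replicate block gave 2670 calls, of which 2385 were among the 2685. Samples of the same number deviated from their group means with correlations of 0.159, 0.12, -0.329 and -0.0178, so the numbers were not taken to pair the samples. Of 12875 recomputed values of named genes, 12009 stayed on their side of the threshold, 684 lost it and 180 gained it. Called values changed direction in 2 cases, both of the thymocyte gene Dntt: 0.26 (adjusted p = 0.863) without room air 3 and 4, and 0.12 (adjusted p = 0.943) without hypoxia 1 as well. A further 186 values changed sign while uncalled before and after. Of 375 called named genes 239 kept their call throughout. Depth limits genes near 0.0474 to 0.169 CPM.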

Other observations

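Fibroblast genes had 5 of 20 members higher and 3 lower. Cd34, a surface marker of adventitial fibroblasts and of endothelium, was at 190.5, 190.3, 189 and 207 CPM in room air and 388, 446, 420.1 and 426 in hypoxia (log2 fold change 1.11 ± 0.13, adjusted p = 1.05e-05), and every hypoxia sample exceeded every room air sample. Dpt, the adventitial matrix protein dermatopontin, was lower at 145, 151, 157 and 173 CPM in room air and 100.1, 88.7, 90 and 86.2 in hypoxia (log2 fold change -0.78 ± 0.09, adjusted p = 6.54e-06). Wnt2, a ligand of alveolar fibroblasts, was lower at 20.5, 21.7, 16.3 and 17.9 CPM in room air and 13.8, 11.4, 17.3 and 11.6 in hypoxia, with overlap between the groups (log2 fold change -0.50 ± 0.15, adjusted p = 0.0269). Wnt2 lost its call without room air 1 or 2 or hypoxia 2 or 4 (adjusted p = 0.0782 to 0.0965). The alveolar fibroblast genes Tcf21, Npnt and Inmt did not pass, with log2 fold changes of 0.15 ± 0.19, 0.11 ± 0.10 and -0.04 ± 0.15. Among matrix proteases and inhibitors 4 of 20 were higher and 2 lower. Adamts4, an aggrecanase, was at 1.76, 1.43, 1.25 and 0.954 CPM in room air and 4.18, 3.38, 4.97 and 4.3 in hypoxia (log2 fold change 1.62 ± 0.28, adjusted p = 0.000547). Mmp9, a gelatinase of neutrophils and macrophages, was lower at 25.5, 38.2, 30.5 and 61 CPM in room air and 18.3, 11.5, 13.1 and 11 in hypoxia (log2 fold change -1.52 ± 0.32, adjusted p = 0.00449).

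Among 8 neurotrophin genes 1 was higher, Ntrk2, and 2 were lower, Bdnf and Ngfr. Bdnf lost its call without room air 1, 2 or 3 or hypoxia 1, 2 or 3 (adjusted p = 0.056 to 0.139). Ngfr, the low-affinity receptor, was lower at 0.493, 1.06, 0.564 and 0.343 CPM in room air and 0.23, 0.125, 0.226 and 0.118 in hypoxia (log2 fold change -1.78 ± 0.45, adjusted p = 0.00992). Ngfr did not pass without hypoxia 1 and 2 (adjusted p = 0.0611). Of 19 p53 targets and apoptosis genes 4 were higher and 1 lower. Fas, the death receptor, was at 58.3, 58.3, 63.7 and 77.5 CPM in room air and 93.6, 88.6, 124 and 125 in hypoxia (log2 fold change 0.74 ± 0.16, adjusted p = 0.0033). Bcl2, which protects from apoptosis, was lower at 49.6, 45.2, 43.1 and 46 CPM in room air and 31.9, 40.3, 38.1 and 31.9 in hypoxia (log2 fold change -0.37 ± 0.09, adjusted p = 0.00917), while the p53 targets Cdkn1a and Mdm2 did not pass (0.26 ± 0.37 and -0.16 ± 0.07). In fatty acid handling Fabp4, a carrier protein of capillaries and fat, was lower at 29.2, 40.1, 43.5 and 23.3 CPM in room air and 15.3, 18, 9.66 and 12.8 in hypoxia (log2 fold change -1.28 ± 0.32, adjusted p = 0.0123), beside the lower fat markers of the same samples, whose part in it was not tested.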
